A study of Homo sapiens with 91 samples.

Results

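The 42 genes described here are interferon-stimulated genes, a named set chosen by symbol that includes transcription factors of the interferon response, sensors of foreign nucleic acid, antiviral effectors and antigen presentation genes. All 42 were found by Ensembl identifier among the 62710 genes counted in 3 human cancer cell lines. MOLT4 is an acute lymphoblastic leukemia line, PSN1 a pancreatic adenocarcinoma line and RH4 a rhabdomyosarcoma line (the series' design text writes RH1, but every sample label says RH4). Cells were exposed to KI-CDK9d-32, which degrades the kinase CDK9, to KB-0742, which inhibits it, or to the DMSO vehicle, and RNA was sequenced after 2, 4 and 8 h in MOLT4, after 2, 4 and 8 h in PSN1 without KB-0742 at 2 h, and after 4 and 8 h in RH4. No interferon was added in any group, the labels give no dose, and each line is a single established line. Of the 91 libraries, 32 came from KI-CDK9d-32, 28 from KB-0742 and 31 from vehicle, with 4 libraries a group except MOLT4 vehicle at 4 h, which had 3 (replicates 1, 3 and 4). Replicates are labelled biological with no word on whether they were separate cultures, so the p-values measure the spread between these libraries.

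Type I and type III interferons signal through cell surface receptors and the kinases JAK1 and TYK2 to ISGF3, a complex containing STAT2 and IRF9 that binds the interferon-stimulated response element (ISRE) of its target promoters. Interferon gamma acts through the gamma-activated site (GAS), by which the transcription factor IRF1 is induced. Many of these genes are also transcribed at a lower level without added interferon. CDK9 is the kinase of P-TEFb, which releases paused RNA polymerase II into productive elongation.

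Most of the promoters carry the letters of the response element, and the sites below are shown because they belong to the genes whose levels the results turn on. RefSeq promoter windows (GRCh38.p14, 250 bases before to 50 bases after the start) were matched for 34 of the 42 genes. The window of 24 of the 34 (70.6%) held GAAA, any 2 bases and GAAA again, on either strand, against 1195 of 27305 genes (4.38%), and 11 of the 34 (32.4%) held the GAS letters TTCNNNGAA, against 2560 genes (9.38%). GAS matches overlapped an ISRE match in IFITM1, IFI27, BST2 and MX1, and in several promoters, among them ISG15, TRIM21 and B2M, ISRE matches overlapped each other. STAT2, IRF1, IRF9, RIGI, OAS1, ADAR, IFI16, SAMHD1, IFI35 and HERC6 had no ISRE match in this window. Capitals mark the motif in each site, which is written 5′ to 3′ on the strand of its gene. DTX3L and PARP9, which lie head to head, share 1 site at chr3:122564324-122564349, read on the plus strand for DTX3L and on the minus strand for PARP9.
DTX3L: agggaagcGAAACTGAAActttgcgc
PARP9: gcgcaaagTTTCAGTTTCgcttccct
The other sites lie at chr11:4393668-4393693 (TRIM21, minus strand), chr21:41420561-41420586 (MX1, plus), chr1:1013382-1013407 (ISG15, plus), chr1:27672290-27672315 (IFI6, minus), chr1:78649763-78649788 (IFI44, plus), chr2:37156969-37156994 (EIF2AK2, minus), chr11:320878-320903 (IFITM3, minus), chr15:44711365-44711390 (B2M, plus) and chr15:88638939-88638964 (ISG20, plus).
TRIM21: tctgagcgGAAACTGAAAgtgaaata
MX1: gcagaaatGAAACCGAAActgaattg
ISG15: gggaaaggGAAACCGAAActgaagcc
IFI6: agagagggGAAAATGAAActgcagag
IFI44: acactgagTTTCAGTTTCctttctct
EIF2AK2: tccaagggGAAAACGAAActgagaac
IFITM3: actgttgaGAAACCGAAActactggg
B2M: gactctaaGAAAAGGAAActgaaaac
ISG20: acaaactaGAAACTGAAAcagggtcg
For IRF1 the GAS letters are shown, at chr5:132490881-132490905 on the minus strand.
IRF1: agcctgatTTCCCCGAAatgacggc

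Each library held 1598283 to 3240753 gene counts in MOLT4, 1998712 to 3227113 in PSN1 and 1670111 to 3136769 in RH4. The same amount of ERCC and SIRV spike-in RNA had been added to every lysate, and at 8 h the spike-ins took 39.9% ± 14.8, 21.5% ± 2.59 and 14.5% ± 1.91 of MOLT4 counts in KI-CDK9d-32, KB-0742 and vehicle (SD, n = 4 each). At 8 h their share was 17.3% ± 2.28, 17.1% ± 3.58 and 12.6% ± 0.461 in PSN1, and 12.9% ± 2.03, 15.1% ± 2.22 and 9.71% ± 2.07 in RH4, in the same order. The 3 MOLT4 libraries with the highest shares were KI-CDK9d-32 at 8 h replicate 3 with 61.5%, KB-0742 at 4 h replicate 3 with 49.4% and KI-CDK9d-32 at 4 h replicate 3 with 39.5%. Markers of monocytes, macrophages and dendritic cells, which respond strongly to interferon, summed over 10 genes to 7.99 to 12.8, 3.96 to 6.48 and 8.35 to 12.9 TPM in MOLT4 at 8 h (KI-CDK9d-32, KB-0742 and vehicle), with FCGR3A and CLEC4C at 0 in every MOLT4 library. The 10 T-lineage markers summed to 1421 to 1664, 1306 to 1806 and 2673 to 2914 TPM in the same libraries. By edgeR's test on the scale used below, 5 of the 9 T-lineage markers tested were higher and 4 lower after KI-CDK9d-32 at 8 h, and 0 higher and 3 lower after KB-0742 (0 higher and 9 and 7 lower with spike-in scaling). The 10 markers of the labelled tissue summed to 1356 to 3663 TPM in PSN1 (epithelial) and 876 to 1424 TPM in RH4 (myogenic), and T-lineage markers to at most 1.12 and 1.54 TPM in the 2 lines. In RH4 at 8 h the myogenic sum was 876 to 979, 953 to 1173 and 1128 to 1424 TPM in KI-CDK9d-32, KB-0742 and vehicle, whereas singly 6 of 9 tested were higher and 1 lower after KI-CDK9d-32 and 7 higher and 1 lower after KB-0742 (0 higher and 4 and 7 lower with spike-in scaling). The part of these markers in the results below was not tested.

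No transcript of the interferon genes IFNB1 or IFNL1 was counted in any of the 91 libraries, while IFNAR1 and IFNAR2, the receptor chains for type I interferon, were counted in every one. In vehicle-treated cells the 42 genes ranged in mean level from 0 to 1381 TPM. Levels per transcript length are given as TPM over genes, without spike-ins, as mean ± SD over the vehicle libraries of all times (n = 11 in MOLT4, 12 in PSN1 and 8 in RH4). B2M, the invariant light chain of class I molecules, was at 758 ± 60.2, 1232 ± 98.6 and 352 ± 33.8 TPM in MOLT4, PSN1 and RH4. IFITM3, a membrane protein that blocks virus entry, was at 1381 ± 194 TPM in PSN1 and 847 ± 82.4 in RH4, against 5.36 ± 3.97 in MOLT4. MOLT4 libraries held more IRF1 (36.8 ± 5.32 TPM, against 13.3 ± 2.30 in PSN1 and 5.19 ± 1.13 in RH4) and more USP18, the protease that removes ISG15 from its targets (21.8 ± 2.73, 2.77 ± 1.20 and 0.910 ± 0.631). The lines' vehicle ranges did not overlap for either gene, save USP18 between PSN1 and RH4.

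In RH4 23 of the 42 genes were below 1 TPM, against 6 in MOLT4 and 10 in PSN1, and IFIH1, OAS1, OAS2, OAS3, TRIM21, TRIM22 and PSMB8-AS1 had no count in any vehicle library. MOLT4 had no OASL count in any library and almost no SAMHD1, a nuclease that depletes nucleotides (5 counts over 11 vehicle libraries), while SAMHD1 was at 2.65 ± 1.19 TPM in PSN1 and 1.62 ± 0.629 in RH4. The filter on low counts left 38 of the 42 to be tested in MOLT4, 34 for PSN1 and 17 for RH4. In all 3 lines 16 genes passed, and IFI44L passed in none. Without the libraries of 1 compound or of vehicle some would not have been tested, and a gene tested only through the group where it is high leaned to a difference by selection. These were SAMHD1 in MOLT4 through KI-CDK9d-32, RIGI and IFIT2 in RH4 through KB-0742, IRF7, IFIH1, IFIT1, IFIT2 and IFIT3 in MOLT4 and IRF7 and MX1 in PSN1 through vehicle, and IFIT3 in PSN1 through KI-CDK9d-32 and vehicle. IFITM1, IFITM2 and IFITM3 are near-identical and IFITM1 lies inside the annotated IFITM2 gene, so their counts may have been split between them. PARP9 and DTX3L overlap at their starts and PSMB8-AS1 overlaps TAP1 on the opposite strand, and without strand information reads of the shared bases could not be told apart.

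**Figure D1:**
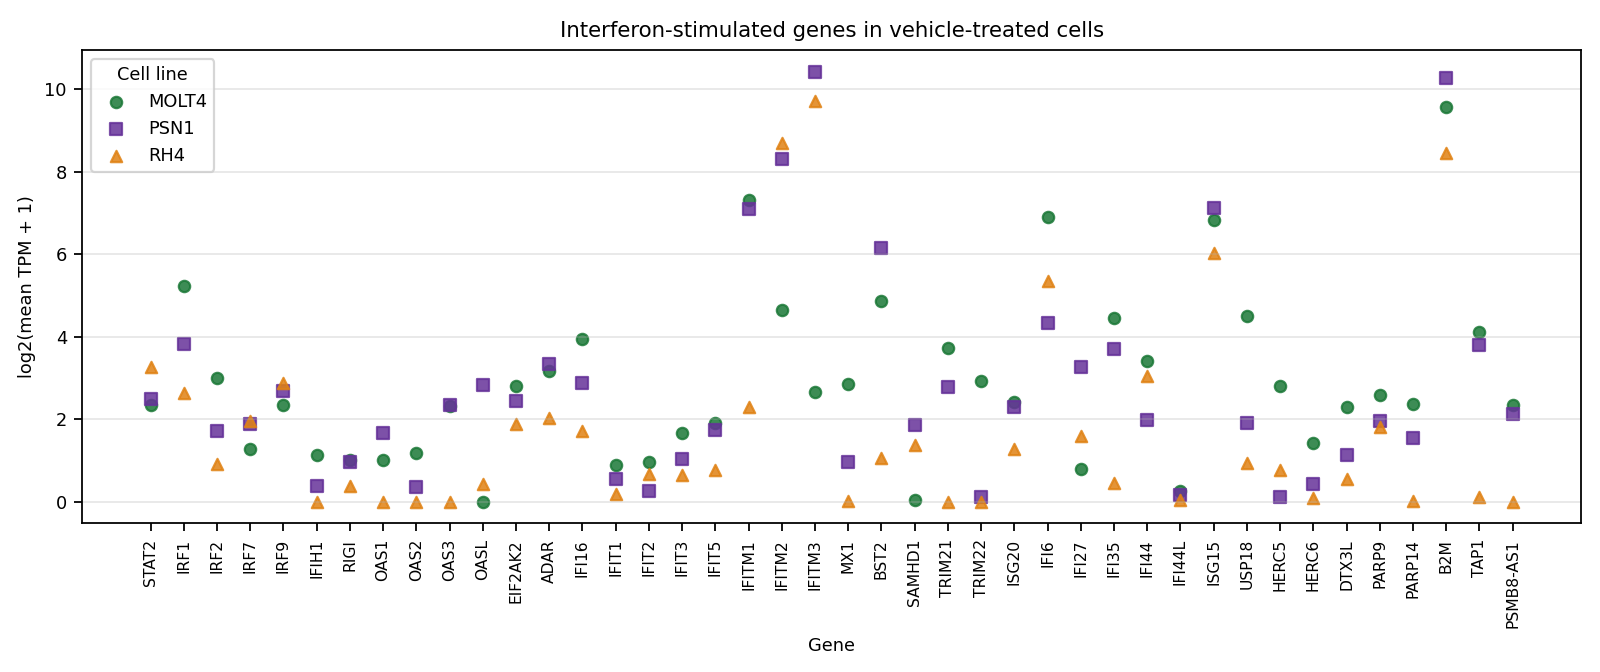
Mean level of each of the 42 genes in vehicle-treated MOLT4 (circles, 11 libraries), PSN1 (squares, 12) and RH4 (triangles, 8), as log2 of the mean TPM plus 1, with genes ordered by role. B2M was high in the 3 lines (758, 1232 and 352 TPM), IFITM3 only in PSN1 and RH4 (1381 and 847 TPM, against 5.36 in MOLT4), and 23 genes lay below 1 TPM in RH4.

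Changes are given as the log2 fold change ± SE of counts scaled by TMM, that is, relative to the remaining genes in each library, and a gene was called at an adjusted p below 0.05 in edgeR's quasi-likelihood test, with Benjamini-Hochberg adjustment over all genes tested in that comparison. A call is given as lost without a library where the adjusted p passed 0.05 once that library was left out, with the log2 fold change then found in parentheses. Values per library are CPM, counts scaled to a common library size by TMM, in replicate order. Scaled instead by the spike-ins, that is, per lysate, the median gene of MOLT4 at 8 h stood at -2.99 after KI-CDK9d-32 and -1.41 after KB-0742, against -0.18 and -0.10 with TMM. In PSN1 at 8 h the spike-in median was -1.01 after KI-CDK9d-32 and -0.94 after KB-0742, and in RH4 -0.92 and -1.66. Every gene of the set called lower against vehicle was also below vehicle under spike-in scaling, whereas most called higher were not above it. In these bulk libraries fewer cells and less RNA per cell cannot be told apart.

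In MOLT4 each time had genes called higher and genes called lower against vehicle. At 8 h, on the TMM scale, B2M and IFI6 were among the higher ones after either compound. USP18, MX1 and DTX3L were among the lower ones at 8 h after either compound, and TRIM21 after KI-CDK9d-32. Against vehicle, KI-CDK9d-32 left 1 of 38 genes higher and 3 lower at 2 h (4.56% and 5.41% of all 11664 genes tested, 9.97% in either direction), 4 higher and 6 lower at 4 h (13.6% and 18.9%, 32.6% in either direction), and 9 higher and 11 lower at 8 h (20.8% and 28.7%, 49.6% in either direction). KB-0742 left 6 higher and 3 lower at 2 h (13.2% and 12.9%, 26.1% in either direction), 6 higher and 7 lower at 4 h (18.1% and 17.7%, 35.8% in either direction), and 5 higher and 18 lower at 8 h (23.4% and 25.8%, 49.2% in either direction). The 18 of 38 lower after KB-0742 at 8 h made 47.4% of the set, above the background, and the median of the 38 genes was -0.71 there, against -0.10 over all genes. The KI-CDK9d-32 counts at 8 h lay near the background, with a median of -0.26 against -0.18 over all genes. Both medians include IRF7, IFIH1, IFIT1, IFIT2 and IFIT3, which were tested only through vehicle libraries and so leaned to lower by selection. IFIH1 and IFIT1 were among the 18 lower after KB-0742, and all but IRF7 among the 11 lower after KI-CDK9d-32. How far these genes account for the distance from the background was not tested. With spike-in scaling 1 of the 38 was higher and 34 lower after KI-CDK9d-32 at 8 h (0.857% and 91% of all genes), and 0 higher and 27 lower after KB-0742 (0.609% and 54.3%).

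**Figure D2:**
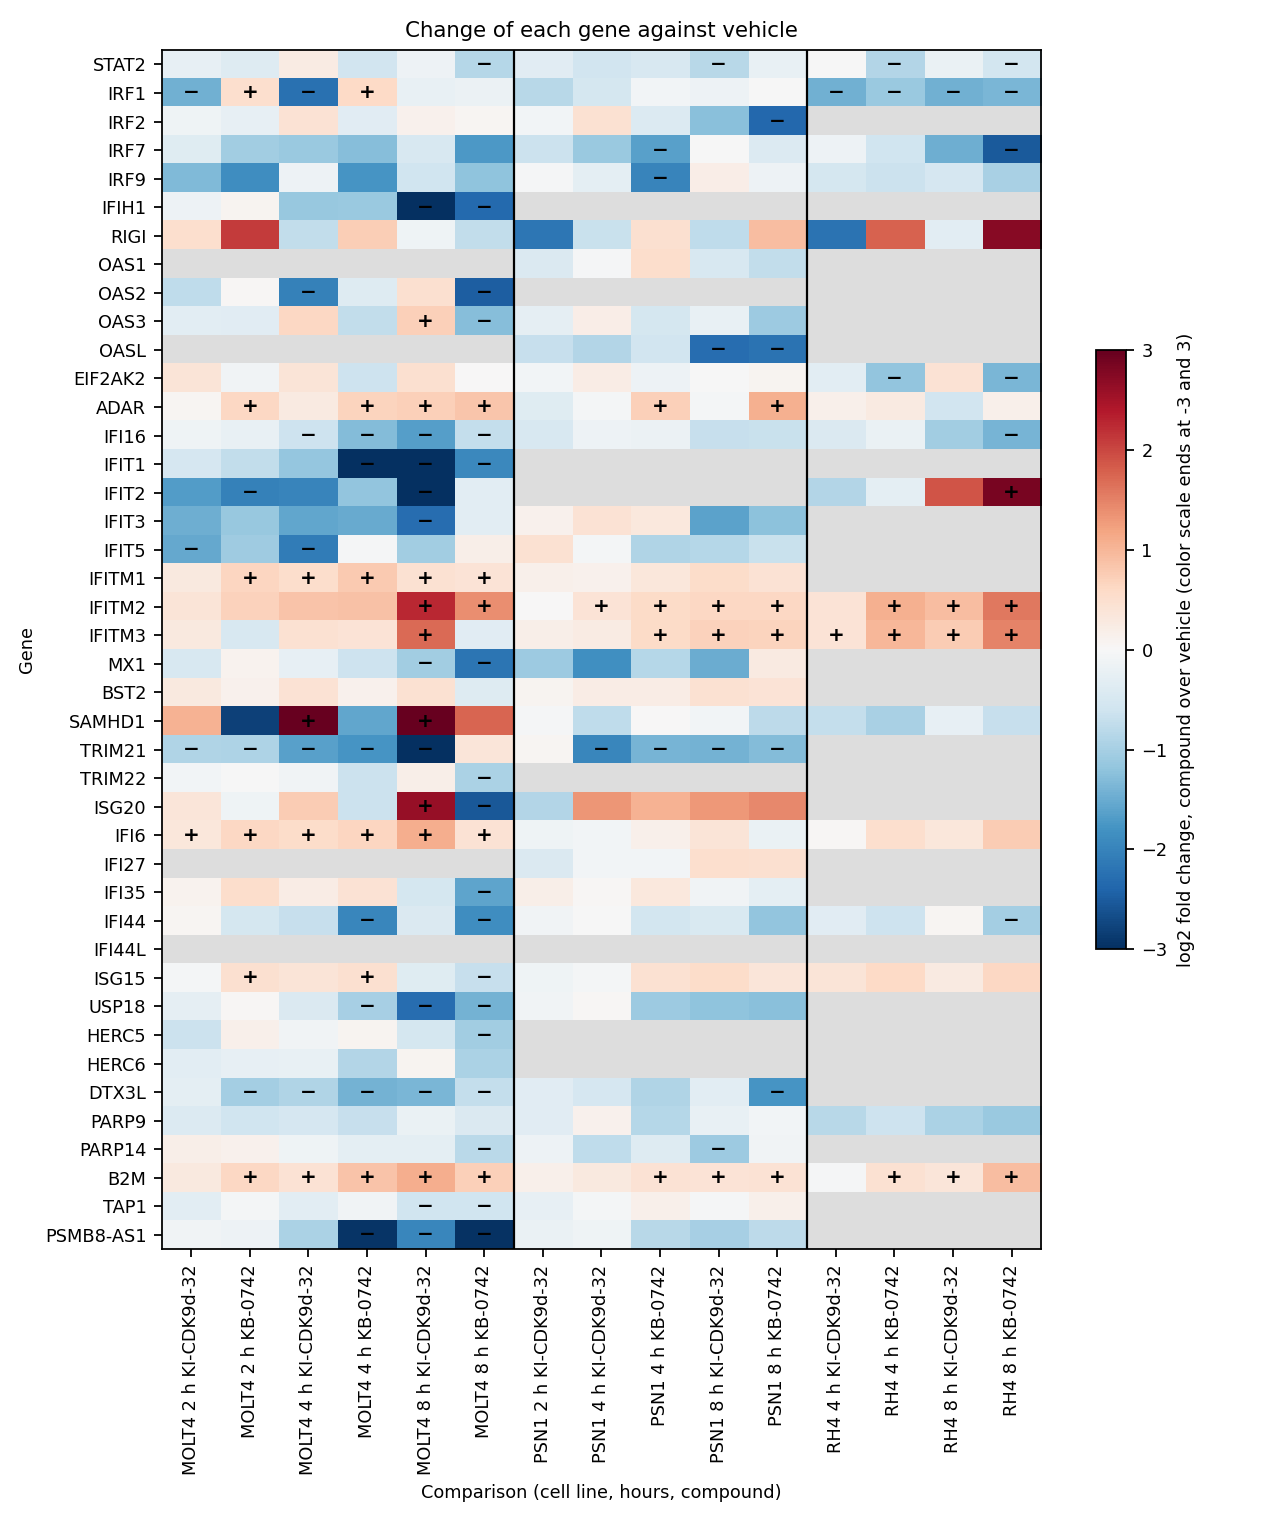
Log2 fold change over vehicle of each gene (rows, by role) in each line, time and compound (columns), with TMM scaling. Plus and minus mark genes called higher and lower, gray marks genes not tested, and the colors end at -3 and 3. Plus signs stand mostly at IFITM1, IFITM2, IFITM3, IFI6, ADAR and B2M, and most of those turn negative with spike-in scaling, while TRIM21, DTX3L and USP18 carry minus signs.

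IRF1, itself a transcription factor of interferon targets, moved in opposite directions from vehicle after the 2 compounds in MOLT4 on the TMM scale, and was below vehicle after both with spike-in scaling. At 2 h it had 22.8, 15.2, 24.5 and 21.5 CPM in KI-CDK9d-32 libraries, 81.8, 81.4, 97.1 and 66.2 in KB-0742 libraries and 59.6, 58.4, 54.9 and 56.7 in vehicle libraries. At 4 h the values were 15.9, 15.9, 11.5 and 15.2 CPM after KI-CDK9d-32, 113, 98.9, 115 and 94.0 after KB-0742 and 71.5, 79.2 and 56.3 in vehicle. At both times every KI-CDK9d-32 library lay below, and every KB-0742 library above, all vehicle libraries. The log2 fold change after KI-CDK9d-32 was -1.45 ± 0.18 (adjusted p = 6.15e-08) at 2 h and -2.23 ± 0.20 (adjusted p = 2.09e-12) at 4 h. After KB-0742 it was 0.51 ± 0.16 at 2 h and 0.60 ± 0.18 at 4 h, against -0.33 and -0.70 with spike-in scaling. The 2 h call after KB-0742 was lost without KB-0742 replicate 3 (0.41), and the 4 h call without vehicle replicate 4 (0.47). By 8 h IRF1 stood at 48.3, 57.6, 53.3 and 35.5 CPM after KI-CDK9d-32, 64.4, 57.9, 47.1 and 33.7 after KB-0742 and 60.8, 55.6, 68.0 and 43.2 in vehicle. The 3 groups then overlapped, and neither compound passed the test (-0.23 ± 0.18 and -0.17 ± 0.17).

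STAT2, the subunit of ISGF3 that activates transcription, had 12.4, 20.0, 14.7 and 17.5 CPM after KI-CDK9d-32 at 8 h, 12.2, 9.91, 9.87 and 8.32 after KB-0742 and 17.4, 19.6, 19.6 and 16.1 in vehicle. All KB-0742 libraries lay below the others, whereas KI-CDK9d-32 and vehicle overlapped. STAT2 was lower after KB-0742 (-0.85 ± 0.27, adjusted p = 0.00834) and not called after KI-CDK9d-32 (-0.16 ± 0.27). IRF9, the DNA-binding subunit, was counted thinly, with 3, 7, 9 and 10 counts after KI-CDK9d-32, 2, 9, 0 and 19 after KB-0742 and 14, 19, 33 and 28 in vehicle. These are raw counts, not scaled to a common library size, and their spread was wide. Neither fold change of IRF9 passed (-0.60 ± 0.76 and -1.20 ± 0.75). IRF2 and IRF7, a repressor and an amplifier of the interferon response, were not called against vehicle at any time in MOLT4.

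Among the sensors and double-stranded RNA enzymes of MOLT4, 2 of 7 tested were higher and 2 lower after KI-CDK9d-32 at 8 h (20.8% and 28.7% of all genes). After KB-0742 1 was higher and 4 lower (23.4% and 25.8% of all genes). OAS3, a synthase of the 2-5A messenger that activates RNase L, had 28.7, 20.6, 19.3 and 35.5 CPM after KI-CDK9d-32, 4.95, 3.13, 6.73 and 10.6 after KB-0742 and 18.2, 14.3, 16.5 and 14.5 in vehicle at 8 h. The 3 groups did not overlap, with the KI-CDK9d-32 libraries highest and the KB-0742 libraries lowest. Its log2 fold change was 0.73 ± 0.28 after KI-CDK9d-32 (-2.01 with spike-in scaling) and -1.28 ± 0.31 (adjusted p = 6.88e-04) after KB-0742. The KI-CDK9d-32 call was lost without KI-CDK9d-32 replicate 1 (0.71), vehicle replicate 4 (0.68), KI-CDK9d-32 replicate 4 (0.57) and vehicle replicate 2 (0.68), and without the filter on low counts. ADAR, which edits double-stranded RNA, had 100.5, 78.8, 48.7 and 96.7 CPM after KI-CDK9d-32 at 8 h, 91.8, 129, 65.9 and 70.7 after KB-0742 and 45.0, 62.1, 49.1 and 43.2 in vehicle. Every KB-0742 library lay above vehicle, and 3 of 4 KI-CDK9d-32 libraries did. With TMM it was higher by 0.72 ± 0.18 after KI-CDK9d-32 and 0.84 ± 0.18 after KB-0742 (-1.98 and -0.49 with spike-in scaling), and after KB-0742 it was also called at 2 and 4 h.

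IFI16, a sensor of DNA, fell after either compound at 8 h, to 4.57, 6.06, 11.0 and 19.8 CPM after KI-CDK9d-32 and 26.1, 11.5, 22.9 and 19.7 after KB-0742, against 33.9, 38.5, 30.5 and 29.0 in vehicle. No treated library reached the vehicle range. Against vehicle, the log2 fold change was -1.65 ± 0.27 (adjusted p = 9.98e-07) after KI-CDK9d-32 and -0.71 ± 0.23 after KB-0742, where the call was lost without KB-0742 replicate 2 (-0.53). IFIH1, the sensor MDA5, which passed the filter only through vehicle libraries, had no count in the 4 KI-CDK9d-32 libraries at 8 h, 2, 1, 0 and 3 counts after KB-0742 and 16, 11, 10 and 8 in vehicle. Counted at the floor, which is 3 counts for the 4 libraries together, it was at least 6.98-fold lower after KI-CDK9d-32. EIF2AK2, the kinase PKR, was not called against vehicle at any time in MOLT4.

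The IFIT genes, whose proteins bind foreign RNA and block its translation, were thinly counted in MOLT4. At 8 h 3 of 4 were lower after KI-CDK9d-32 (28.7% of all genes), all 3 tested only through the vehicle libraries. IFIT2 had no count in the KI-CDK9d-32 libraries, 4, 3, 6 and 10 after KB-0742 and 14, 12, 2 and 13 in vehicle, which made it at least 6.36-fold lower after KI-CDK9d-32. IFIT1 had 0, 1, 0 and 2 counts after KI-CDK9d-32, 4, 2, 4 and 0 after KB-0742 and 6, 14, 22 and 13 in vehicle. The ratio of its KI-CDK9d-32 to its vehicle counts, each scaled by TMM library size, was 0.117 (95% interval 0.0234 to 0.361), an interval for counting error only. IFIT3 had 2, 2, 0 and 2 counts after KI-CDK9d-32, 11, 6, 9 and 10 after KB-0742 and 15, 12, 21 and 15 in vehicle. The KI-CDK9d-32 libraries lay below all others in CPM, with a log2 fold change of -2.28 ± 0.74 against vehicle. After KB-0742 only IFIT1 was called at 8 h (-1.92 ± 0.75), and that call was lost without KB-0742 replicate 4 (-1.47), KB-0742 replicate 2 (-1.89) and vehicle replicate 3 (-1.53), and without the filter on low counts.

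The IFITM genes went the other way on the TMM scale. IFITM2 had 60.0, 36.4, 51.4 and 52.4 CPM after KI-CDK9d-32 at 8 h, 35.6, 14.1, 38.6 and 21.9 after KB-0742 and 17.6, 3.72, 10.2 and 9.67 in vehicle. All KI-CDK9d-32 libraries were above vehicle, and 3 of 4 KB-0742 libraries were. Its log2 fold change was 2.26 ± 0.48 (adjusted p = 2.80e-04) after KI-CDK9d-32 (-0.57 with spike-in scaling) and 1.40 ± 0.48 after KB-0742 (0.053 with spike-in scaling). The KB-0742 call was lost without KB-0742 replicate 1 (1.26), vehicle replicate 2 (1.13) and KB-0742 replicate 3 (1.20). IFITM1 was higher by 0.47 ± 0.14 after KI-CDK9d-32 and 0.40 ± 0.13 after KB-0742 (-2.34 and -0.93 with spike-in scaling), the KB-0742 call being lost without vehicle replicate 2 (0.29). IFITM3 was thinly counted in MOLT4, with 8, 19, 9 and 8 counts after KI-CDK9d-32 and 18, 3, 7 and 2 in vehicle. The groups overlapped, and its call (1.69 ± 0.72, and -1.08 with spike-in scaling) was lost without any 1 of 5 of the 8 libraries (all but KI-CDK9d-32 replicate 1, KI-CDK9d-32 replicate 4 and vehicle replicate 1), where the log2 fold change was 1.39 to 1.73. It was also lost without the filter on low counts and without the MOLT4 libraries of highest spike-in share.

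TRIM21, an antibody receptor and ubiquitin ligase in the cytosol, was the most lowered after KI-CDK9d-32 at 8 h in MOLT4 among the genes averaging a log2 CPM of 3 or more, called well counted from here on. At 8 h it had 1.96, 3.64, 0.918 and 1.17 CPM after KI-CDK9d-32, 15.8, 14.6, 24.7 and 40.1 after KB-0742 and 24.1, 17.4, 14.7 and 18.0 in vehicle. The KI-CDK9d-32 libraries lay far below all others, and the KB-0742 and vehicle libraries overlapped. At 4 h, in contrast, both compounds had lowered it, to 6.64, 9.10, 2.49 and 8.49 CPM after KI-CDK9d-32 and 4.53, 7.89, 9.71 and 3.24 after KB-0742, against 26.3, 16.7 and 20.0 in vehicle. After KI-CDK9d-32 the log2 fold change was -0.91 ± 0.29 at 2 h, -1.64 ± 0.34 at 4 h and -3.20 ± 0.43 (adjusted p = 1.62e-08) at 8 h, and the 2 h call was lost without any 1 of 7 of the 8 libraries (all but vehicle replicate 2), where the log2 fold change was -0.98 to -0.78. After KB-0742 it was -0.92 ± 0.29 at 2 h, a call lost without KB-0742 replicate 4 (-0.77) and vehicle replicate 3 (-0.79), -1.77 ± 0.36 at 4 h and 0.37 ± 0.29, not called, at 8 h.

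MX1, a GTPase that traps viral nucleocapsids, and IFI44, a GTP-binding protein, were the 2 most lowered after KB-0742 at 8 h among the well-counted genes. MX1 had 5.22, 6.67, 4.59 and 13.4 CPM after KI-CDK9d-32, 4.50, 4.17, 2.69 and 2.65 after KB-0742 and 16.8, 11.8, 15.4 and 19.7 in vehicle. KB-0742 libraries were the lowest, and KI-CDK9d-32 replicate 4 alone reached the vehicle range. The log2 fold change was -1.05 ± 0.33 after KI-CDK9d-32 and -2.19 ± 0.35 (adjusted p = 1.02e-06) after KB-0742. IFI44 had 12.4, 11.5, 7.35 and 6.41 CPM after KI-CDK9d-32, 2.25, 3.65, 5.83 and 2.27 after KB-0742 and 14.4, 13.3, 15.1 and 8.38 in vehicle. Here too the KB-0742 libraries lay below the rest (-1.87 ± 0.34, adjusted p = 9.48e-06), whereas KI-CDK9d-32 and vehicle overlapped (-0.43 ± 0.32, not called). IFI35 and TRIM22, further antiviral effectors, were also lower after KB-0742 at 8 h (-1.58 ± 0.27 and -0.94 ± 0.27) and not called after KI-CDK9d-32.

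IFI6, an inhibitor of apoptosis and of virus replication, was called higher in MOLT4 at every time after either compound on the TMM scale and was below vehicle with spike-in scaling. At 8 h it had 137, 144, 165 and 157 CPM after KI-CDK9d-32, 101, 102, 89.3 and 89.7 after KB-0742 and 74.9, 63.0, 78.5 and 65.1 in vehicle. The 3 groups did not overlap. After KI-CDK9d-32 the log2 fold change was 0.35 ± 0.12, 0.55 ± 0.13 and 1.10 ± 0.12 at 2, 4 and 8 h, against -0.029, -0.40 and -1.73 with spike-in scaling. The 2 h call was lost without any 1 of 7 of the 8 libraries (all but vehicle replicate 3), where the log2 fold change was 0.29 to 0.38, and without the filter on low counts.

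SAMHD1 and ISG20, an exonuclease, fell outside the rule for named genes because of their low mean level, and were chosen after their values were seen. SAMHD1 had 28, 28, 9 and 3 counts after KI-CDK9d-32 at 4 h and 13, 10, 10 and 17 at 8 h. Over the same times it had 0 counts in 7 of the 8 KB-0742 libraries, with 1 in the other, and 1 count in 1 of the 7 vehicle libraries. At 8 h it was at least 35.8-fold higher after KI-CDK9d-32 than in vehicle, and the KI-CDK9d-32 to KB-0742 ratio was 75.2 (95% interval 12.9 to 3031). It was the 1 gene of the set still called higher against vehicle after spike-in scaling, at 4 and at 8 h, and it had passed the filter on low counts only through the KI-CDK9d-32 libraries, so its call is a description of those counts. ISG20 had 13, 26, 11 and 32 counts after KI-CDK9d-32, 0, 0, 3 and 0 after KB-0742 and 9, 7, 3 and 9 in vehicle at 8 h. The KI-CDK9d-32 libraries were the highest in CPM, at 8.48, 15.8, 10.1 and 18.6 against 2.44, 2.17, 1.05 and 2.90 in vehicle. In edgeR's test the log2 fold change was 2.60 ± 0.62 after KI-CDK9d-32 (-0.11 with spike-in scaling), and the ratio of KB-0742 to vehicle counts was 0.153 (95% interval 0.0298 to 0.495), a call lost, with the log2 fold change then given, without KB-0742 replicate 1 (-2.17), KB-0742 replicate 4 (-2.08) and KB-0742 replicate 2 (-2.22).

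**Figure D3:**
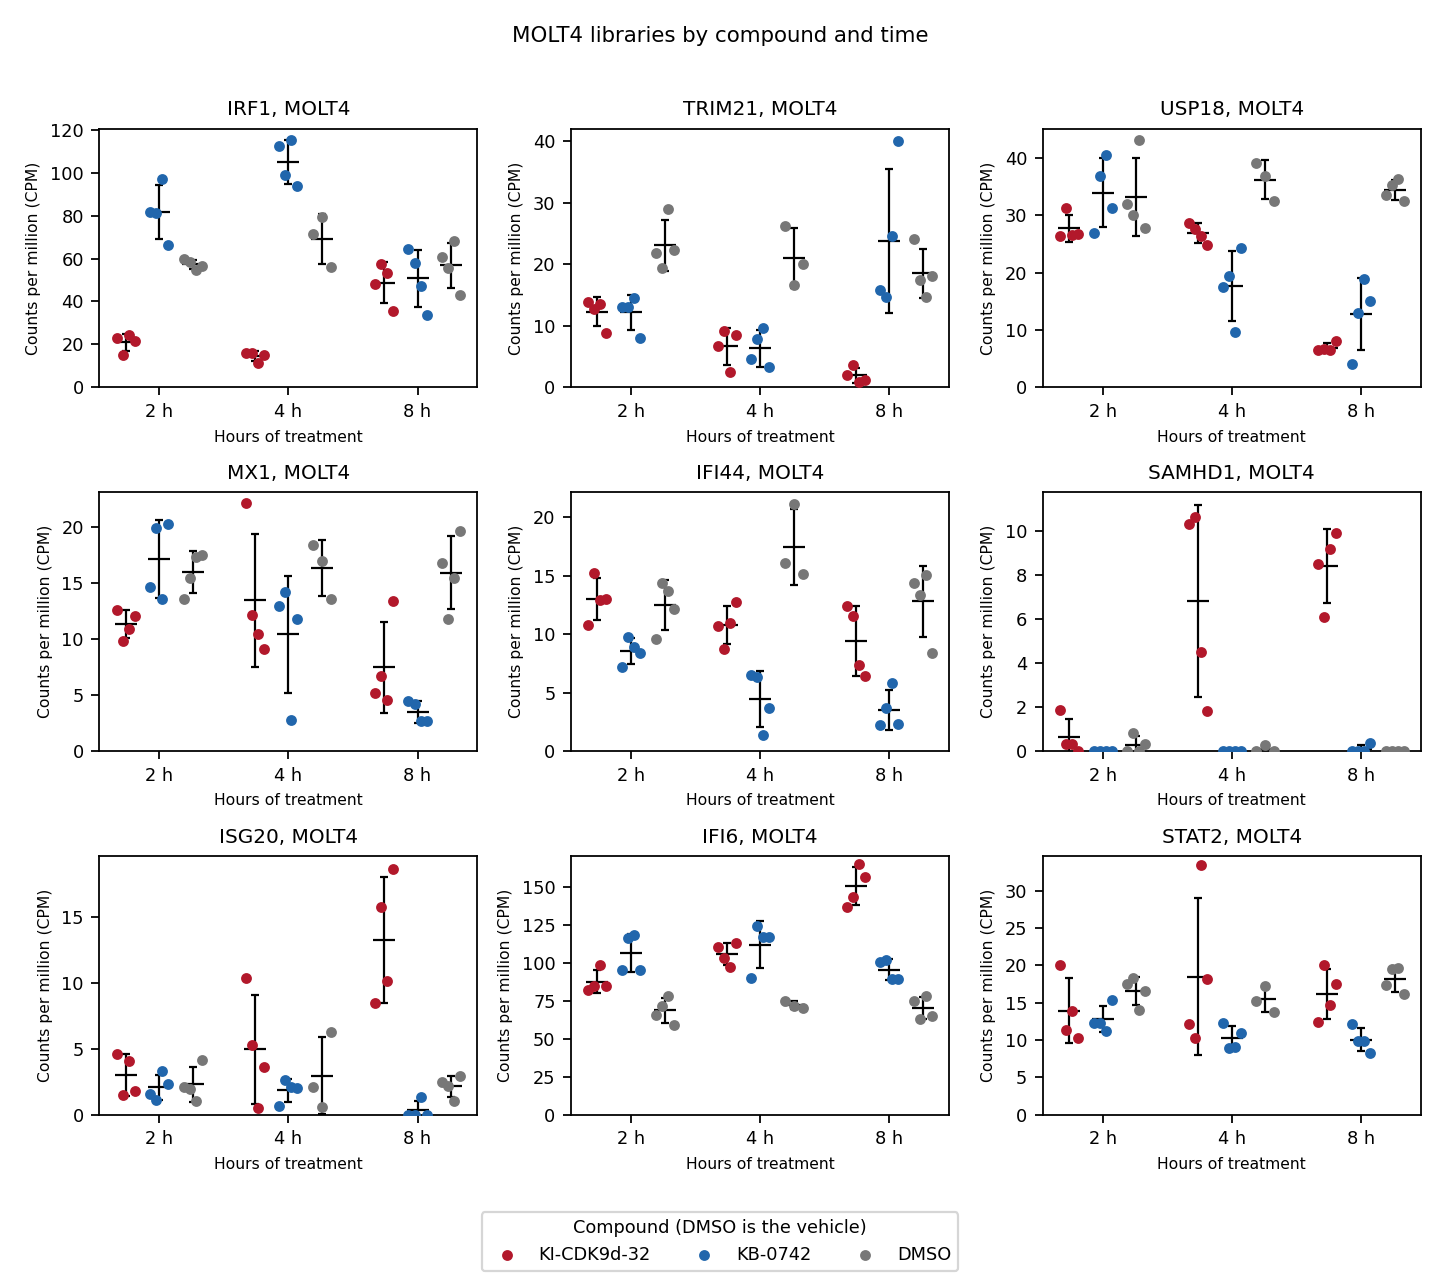
CPM of 9 genes in every MOLT4 library (points), with the mean and SD of each group (bars), at 2, 4 and 8 h of KI-CDK9d-32, KB-0742 and DMSO. IRF1 was low after KI-CDK9d-32 at 2 and 4 h (11.5 to 24.5 CPM) and among the other groups at 8 h (35.5 to 57.6), TRIM21 was at 0.918 to 3.64 CPM after KI-CDK9d-32 at 8 h, and SAMHD1 was counted mostly after KI-CDK9d-32.

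Among ISG15, the enzymes that attach or remove it and the ADP-ribosylation enzymes, 2 of 7 were lower after KI-CDK9d-32 at 8 h and 5 after KB-0742, with none higher. Of all genes 28.7% and 25.8% were lower and 20.8% and 23.4% higher, in the same order. USP18 had 6.53, 6.67, 6.43 and 8.15 CPM after KI-CDK9d-32, 4.05, 13.0, 18.8 and 15.1 after KB-0742 and 33.6, 35.4, 36.5 and 32.5 in vehicle. All treated libraries lay below vehicle, with log2 fold changes of -2.29 ± 0.28 (adjusted p = 1.13e-09) after KI-CDK9d-32 and -1.43 ± 0.24 after KB-0742. ISG15, the ubiquitin-like modifier, had 28.7, 40.0, 35.8 and 41.9 CPM after KI-CDK9d-32, 28.4, 28.2, 30.1 and 31.8 after KB-0742 and 60.8, 38.5, 41.7 and 48.7 in vehicle. KB-0742 libraries were all below vehicle (-0.68 ± 0.18), whereas KI-CDK9d-32 overlapped it (-0.37 ± 0.18, not called). At 2 and 4 h ISG15 had instead been higher after KB-0742, by 0.47 ± 0.16 and 0.49 ± 0.18 (-0.35 and -0.81 with spike-in scaling). The 2 h call was lost without KB-0742 replicate 1 (0.36), vehicle replicate 4 (0.43) and vehicle replicate 2 (0.38), and the 4 h call without vehicle replicate 1 (0.44), KB-0742 replicate 4 (0.36) and vehicle replicate 3 (0.47), and both without the filter on low counts. HERC5, the ligase that attaches ISG15, was lower after KB-0742 at 8 h (-1.05 ± 0.25).

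DTX3L and PARP9, a ubiquitin ligase and its ADP-ribosyltransferase partner, share the promoter site shown above but were not both called. DTX3L had 9.13, 8.49, 7.35 and 5.24 CPM after KI-CDK9d-32 at 8 h, 11.3, 11.5, 8.52 and 16.3 after KB-0742 and 20.1, 23.9, 17.5 and 16.4 in vehicle. All treated libraries lay below vehicle. Against vehicle, the log2 fold change was -1.37 ± 0.31 (adjusted p = 2.28e-04) after KI-CDK9d-32 and -0.70 ± 0.27 after KB-0742, and the KB-0742 call was lost without the filter on low counts and without any 1 of 5 of the 8 libraries (all but KB-0742 replicate 4, vehicle replicate 4 and vehicle replicate 3), where the log2 fold change was -0.69 to -0.57. PARP9 had 12.4, 13.3, 13.8 and 16.9 CPM after KI-CDK9d-32, 11.7, 12.5, 11.7 and 12.1 after KB-0742 and 15.7, 18.0, 18.9 and 12.2 in vehicle. These groups overlapped, and PARP9 was not called (-0.20 ± 0.28 and -0.43 ± 0.27). Whether the 2 genes differed in their change was not tested.

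Of the antigen presentation members, B2M rose on the TMM scale (but not with spike-in scaling) while TAP1, a peptide transporter, and the antisense RNA PSMB8-AS1 fell. B2M had 1134, 1051, 1624 and 990.0 CPM after KI-CDK9d-32 at 8 h, 1000, 944, 942 and 767 after KB-0742 and 559, 546, 649 and 481 in vehicle. All treated libraries were above vehicle, by 1.10 ± 0.11 (adjusted p = 1.15e-11) after KI-CDK9d-32 and 0.71 ± 0.11 after KB-0742 (-1.81 and -0.62 with spike-in scaling). TAP1 was at -0.60 ± 0.23 after KI-CDK9d-32 and -0.60 ± 0.22 after KB-0742. Its KI-CDK9d-32 call was lost with DESeq2 (-0.48) and without any 1 of 6 of the 8 libraries (all but KI-CDK9d-32 replicate 3 and vehicle replicate 2), where the log2 fold change was -0.56 to -0.48, and its KB-0742 call without vehicle replicate 1 (-0.49), KB-0742 replicate 1 (-0.57), vehicle replicate 4 (-0.56) and KB-0742 replicate 4 (-0.51). PSMB8-AS1 was at -1.96 ± 0.73 and -2.97 ± 0.75, the KI-CDK9d-32 call being lost without KI-CDK9d-32 replicate 1 (-1.84), KI-CDK9d-32 replicate 4 (-1.61), vehicle replicate 2 (-1.80) and KI-CDK9d-32 replicate 2 (-1.47).

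The other members were chosen for mention after their values were seen. IFIT5, an RNA-binding relative of IFIT1, was lower after KI-CDK9d-32 in MOLT4 at 2 h (-1.53 ± 0.46) and 4 h (-2.10 ± 0.52), and the 2 h call was lost without KI-CDK9d-32 replicate 2 (-1.31) and vehicle replicate 3 (-1.39). OAS2, a further 2-5A synthase, was lower after KI-CDK9d-32 at 4 h (-2.03 ± 0.67), a call lost without vehicle replicate 1 (-1.86) and KI-CDK9d-32 replicate 3 (-1.66). It was also lower after KB-0742 at 8 h, with 1, 1, 2 and 1 counts against 9, 12, 10 and 11 in vehicle (-2.47 ± 0.78). OAS1, RIGI, BST2, IFI27 and HERC6 were not called against vehicle at any time in any line where they were tested.

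The ISRE letters were found in the promoter windows of genes called in either direction. After KB-0742 at 8 h in MOLT4, 3 of 22 tested genes with a match were higher and 12 lower, against 1 higher and 3 lower of 9 genes whose window held none. Of all genes tested, 23.4% were higher and 25.8% lower. After KI-CDK9d-32 the counts were 6 higher and 8 lower of 22 with a match, and 2 higher and 1 lower of 9 without (20.8% and 28.7% of all genes). IFIH1, IFIT1 and IFIT3, with a match, were tested only through vehicle libraries, and SAMHD1, without, only through KI-CDK9d-32. Whether a match went with a call was not tested. B2M and IFI6, which hold the letters, were higher with TMM and lower with spike-in scaling, whereas TRIM21 and DTX3L, which also hold them, were lower with either scaling after KI-CDK9d-32.

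In PSN1 IFITM2, IFITM3 and B2M were higher on the TMM scale, though not with spike-in scaling, and OASL and TRIM21 were lower, after either compound at 8 h. No gene of 34 was called after KI-CDK9d-32 at 2 h by edgeR (0.128% of genes higher and 0.345% lower among all tested, 0.473% in either direction), where 2 had an unadjusted p below 0.05 and DESeq2 also called 0. At 4 h KI-CDK9d-32 left 1 higher and 1 lower (3.62% and 3.74%, 7.36% in either direction) and KB-0742 left 4 higher and 3 lower (11.3% and 12.6%, 23.9% in either direction). At 8 h KI-CDK9d-32 left 3 higher and 4 lower (11% and 9.6%, 20.6% in either direction) and KB-0742 left 4 higher and 4 lower (15.1% and 15.1%, 30.2% in either direction). These shares lay near the background, and the medians of the 34 genes at 8 h were -0.19 and -0.17, against -0.05 over all genes for either compound. With spike-in scaling 0 of the 34 were higher and 21 lower after KI-CDK9d-32 at 8 h (1.11% and 51.2% of all genes), and 0 higher and 19 lower after KB-0742 (1.2% and 46.8%).

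OASL, a synthetase-like protein that enhances RNA sensing, was the most lowered of the well-counted genes in PSN1 at 8 h. It had 0.413, 2.59, 3.60 and 0.991 CPM after KI-CDK9d-32, 0.858, 2.86, 0.427 and 4.16 after KB-0742 and 9.52, 10.5, 9.12 and 8.75 in vehicle. Every treated library lay below every vehicle library. The log2 fold change was -2.28 ± 0.47 (adjusted p = 3.82e-04) after KI-CDK9d-32 and -2.20 ± 0.47 (adjusted p = 3.57e-04) after KB-0742. TRIM21 had 9.92, 2.59, 5.86 and 0.991 CPM after KI-CDK9d-32, 5.15, 1.64, 11.1 and 3.12 after KB-0742 and 11.8, 16.0, 12.1 and 12.6 in vehicle. All treated libraries were below vehicle, with log2 fold changes of -1.41 ± 0.44 and -1.30 ± 0.44. The first call was lost without KI-CDK9d-32 replicate 2 (-1.19) and KI-CDK9d-32 replicate 4 (-1.14) and the second without vehicle replicate 2 (-1.19), KB-0742 replicate 2 (-0.99) and KB-0742 replicate 4 (-1.14).

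ADAR was higher after KB-0742 in PSN1 with TMM scaling and not after KI-CDK9d-32. It had 66.6, 90.2, 57.7 and 63.5 CPM after KI-CDK9d-32 at 8 h, 164, 141, 150.0 and 149 after KB-0742 and 94.9, 74.2, 56.8 and 64.0 in vehicle. Every KB-0742 library was above all the others, and KI-CDK9d-32 and vehicle overlapped. After KB-0742 the log2 fold change was 1.06 ± 0.15 (adjusted p = 4.38e-07), against 0.18, not called, with spike-in scaling, and after KI-CDK9d-32 it was -0.051 ± 0.15. IFITM3 had 780.1, 804, 1047 and 1010 CPM after KI-CDK9d-32, 852, 821, 895 and 996 after KB-0742 and 440.0, 487, 641 and 679.8 in vehicle. IFITM2 had 209.6, 242, 277 and 248 CPM after KI-CDK9d-32, 263, 229, 233 and 251 after KB-0742 and 149.7, 146, 154 and 179.9 in vehicle. Both genes were above vehicle in all treated libraries, IFITM3 by 0.69 ± 0.11 and 0.66 ± 0.11 and IFITM2 by 0.63 ± 0.11 and 0.63 ± 0.11 after KI-CDK9d-32 and KB-0742, and both were below it with spike-in scaling (-0.33 to -0.27).

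Of the 5 transcription factors in PSN1, 1 was lower after each compound at 8 h, STAT2 after KI-CDK9d-32 (9.6% of all genes lower) and IRF2 after KB-0742 (15.1%). IRF1 had 27.3, 29.9, 14.0 and 17.4 CPM after KI-CDK9d-32 at 8 h, 22.3, 37.2, 25.2 and 13.5 after KB-0742 and 24.8, 28.2, 21.5 and 25.4 in vehicle. The groups overlapped and neither change was called (-0.16 ± 0.26 and -0.010 ± 0.26). At 2 h IRF1 had 19.9, 14.3, 16.5 and 11.1 CPM after KI-CDK9d-32 and 25.1, 27.4, 30.3 and 27.6 in vehicle. The groups did not overlap, but the change missed the threshold over all genes (-0.83 ± 0.26, adjusted p = 0.195). STAT2 had 15.7, 10.3, 8.56 and 18.3 CPM after KI-CDK9d-32 at 8 h, 21.9, 17.2, 20.1 and 21.8 after KB-0742 and 31.2, 19.0, 18.2 and 25.4 in vehicle. It was lower after KI-CDK9d-32 (-0.83 ± 0.25), where 3 of 4 libraries lay below vehicle and the call was lost without vehicle replicate 1 (-0.67), KI-CDK9d-32 replicate 2 (-0.72) and KI-CDK9d-32 replicate 3 (-0.70). IRF9 was not called at 8 h, with overlapping values of 13.2, 10.3, 18.5 and 12.9 CPM after KI-CDK9d-32, 8.58, 9.81, 13.7 and 10.9 after KB-0742 and 8.38, 19.0, 7.06 and 13.4 in vehicle. At 4 h it had been lower after KB-0742, at 2.96, 0, 1.67 and 5.95 CPM against 11.6, 7.88, 11.5 and 12.8 in vehicle (-1.99 ± 0.43, adjusted p = 6.14e-04). IRF2 had 3, 1, 2 and 7 counts after KB-0742 at 8 h and 17, 15, 35 and 29 in vehicle, a log2 fold change of -2.37 ± 0.54.

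Among ISG15 and the ADP-ribosylation genes of PSN1, 1 of 5 tested was lower after each compound at 8 h, and none higher. Of all genes 9.6% were lower and 11% higher after KI-CDK9d-32, and 15.1% and 15.1% after KB-0742. ISG15 had 72.8, 68.4, 117 and 94.7 CPM after KI-CDK9d-32, 64.3, 83.0, 68.0 and 96.7 after KB-0742 and 31.6, 45.5, 82.0 and 79.3 in vehicle. These overlapped, and neither change was called (0.55 ± 0.21 and 0.37 ± 0.21). DTX3L had 7.03, 8.87, 5.86 and 4.96 CPM after KI-CDK9d-32, 3.43, 0.409, 3.42 and 2.60 after KB-0742 and 13.3, 5.48, 7.94 and 7.11 in vehicle. Only after KB-0742 did it lie wholly below vehicle, and only there was it called (-1.77 ± 0.44, adjusted p = 0.00188, against -0.33 ± 0.39 after KI-CDK9d-32). PARP9 overlapped across groups, at 12.4, 6.28, 15.8 and 6.44 CPM after KI-CDK9d-32, 5.15, 9.40, 13.7 and 17.2 after KB-0742 and 15.2, 5.06, 14.4 and 12.6 in vehicle, and was not called (-0.22 ± 0.37 and -0.083 ± 0.37). PARP14, an ADP-ribosyltransferase, was lower after KI-CDK9d-32, at 7.03, 7.02, 9.46 and 9.42 CPM against 22.5, 15.2, 20.0 and 12.6 in vehicle (-1.09 ± 0.28), with no overlap. B2M had 1331, 1380, 1464 and 1889 CPM after KI-CDK9d-32, 1399, 1335, 1567 and 1841 after KB-0742 and 1255, 1138, 1010 and 1167 in vehicle. All treated libraries were above vehicle with TMM, by 0.41 ± 0.12 and 0.43 ± 0.12 (-0.58 and -0.51 with spike-in scaling). The first call was lost without vehicle replicate 3 (0.32) and KI-CDK9d-32 replicate 4 (0.25) and the second without KB-0742 replicate 4 (0.32).

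In RH4 IFITM2, IFITM3 and B2M were higher on the TMM scale, with spike-in values near or below 0, and IRF1 was lower, after either compound at 8 h. Of the 17 genes tested, KI-CDK9d-32 left 1 higher and 1 lower at 4 h (3.47% and 1.87% of all genes tested, 5.34% in either direction) and 3 higher and 1 lower at 8 h (9.2% and 6.06%, 15.3% in either direction). KB-0742 left 3 higher and 3 lower at 4 h (15.4% and 16.2%, 31.6% in either direction) and 4 higher and 6 lower at 8 h (22.5% and 23%, 45.5% in either direction). The medians of the 17 genes at 8 h were -0.21 after KI-CDK9d-32 and -0.56 after KB-0742, against -0.04 and -0.09 over all genes. With spike-in scaling 0 of the 17 were higher and 7 lower after KI-CDK9d-32 at 8 h (0.738% and 51.6% of all genes), and 0 higher and 13 lower after KB-0742 (1% and 77.9%).

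On the TMM scale IFITM2 and IFITM3 had the 2 highest fold changes of the well-counted genes in RH4 at 8 h. IFITM2 had 319.9, 351, 388 and 344 CPM after KI-CDK9d-32, 489, 441, 728 and 572 after KB-0742 and 149, 183, 214 and 195 in vehicle. IFITM3 had 556, 518, 541 and 533 CPM after KI-CDK9d-32, 833, 719.6, 1085 and 914 after KB-0742 and 336, 300.1, 325 and 305 in vehicle. For both genes the 3 groups stood apart, with the KB-0742 libraries highest and the vehicle libraries lowest. IFITM2 was higher by 0.92 ± 0.13 after KI-CDK9d-32 and 1.59 ± 0.13 (adjusted p = 1.32e-11) after KB-0742, against 0.021 and -0.0040 with spike-in scaling. IFITM3 was higher by 0.76 ± 0.10 after KI-CDK9d-32 and 1.49 ± 0.10 (adjusted p = 2.46e-15) after KB-0742, against -0.12 and -0.080 with spike-in scaling. B2M had 379, 257, 321 and 277 CPM after KI-CDK9d-32, 506, 377, 467 and 465 after KB-0742 and 245, 224, 245 and 237 in vehicle. All treated libraries were above vehicle with TMM, by 0.37 ± 0.11 after KI-CDK9d-32, a call lost without KI-CDK9d-32 replicate 1 (0.26) and vehicle replicate 2 (0.35), and by 0.93 ± 0.11 after KB-0742 (-0.53 and -0.65 with spike-in scaling).

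EIF2AK2, the double-stranded RNA kinase that halts translation, was lowered by KB-0742 in RH4. It had 15.6, 14.3, 10.6 and 11.0 CPM after KI-CDK9d-32 at 8 h, 3.30, 2.53, 3.51 and 5.76 after KB-0742 and 11.4, 12.2, 6.27 and 8.37 in vehicle. KB-0742 libraries lay below all others, while KI-CDK9d-32 and vehicle overlapped. In edgeR's test the log2 fold change was 0.43 ± 0.31, not called, after KI-CDK9d-32 and -1.37 ± 0.38 (adjusted p = 0.00317) after KB-0742. IFI44 had 7.59, 13.3, 5.29 and 6.72 CPM after KI-CDK9d-32, 5.50, 3.79, 4.68 and 0.824 after KB-0742 and 9.13, 8.81, 5.41 and 8.37 in vehicle. KB-0742 replicate 1 lay just inside the vehicle range, and the other KB-0742 libraries below it. Its KB-0742 call (-1.03 ± 0.42) was lost without any 1 of 6 of the 8 libraries (all but KB-0742 replicate 1 and vehicle replicate 3), where the log2 fold change was -1.14 to -0.76.

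IRF1 was low after either compound in RH4, and its mean level was under the limit of the rule that picks named genes, although it was followed in every line. At 4 h it had 4.42, 3.29, 3.25 and 3.04 CPM after KI-CDK9d-32, 5.87, 5.72, 2.44 and 3.44 after KB-0742 and 12.2, 11.2, 6.55 and 7.92 in vehicle. At 8 h it had 2.23, 3.00, 6.11 and 0.708 CPM after KI-CDK9d-32, 3.30, 4.43, 2.93 and 1.65 after KB-0742 and 10.6, 8.81, 5.13 and 8.09 in vehicle. All treated libraries lay below vehicle except KI-CDK9d-32 replicate 3 at 8 h. The log2 fold change after KI-CDK9d-32 was -1.44 ± 0.42 at 4 h and -1.44 ± 0.44 at 8 h. The 4 h call was lost without any 1 of 7 of the 8 libraries (all but vehicle replicate 3), where the log2 fold change was -1.57 to -1.29, and the 8 h call was lost without vehicle replicate 1 (-1.28), KI-CDK9d-32 replicate 1 (-1.33) and KI-CDK9d-32 replicate 4 (-1.10). After KB-0742 it was -1.11 ± 0.43 at 4 h and -1.37 ± 0.47 at 8 h. Here the 4 h call was lost without vehicle replicate 1 (-0.97), vehicle replicate 2 (-1.02), KB-0742 replicate 4 (-1.02) and KB-0742 replicate 3 (-0.92), and the 8 h call without KB-0742 replicate 4 (-1.19). Without the filter on low counts both 4 h calls of IRF1 and the IFI44 call in RH4 were lost.

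STAT2 in RH4 had 36.6, 37.7, 26.5 and 29.0 CPM after KI-CDK9d-32 at 8 h, 28.0, 30.4, 16.4 and 27.2 after KB-0742 and 47.3, 43.2, 30.8 and 28.5 in vehicle. The groups overlapped, and STAT2 was called lower after KB-0742 (-0.56 ± 0.21) and not after KI-CDK9d-32 (-0.21 ± 0.20). The call was lost without vehicle replicate 1 (-0.45), vehicle replicate 2 (-0.48) and KB-0742 replicate 3 (-0.39). IRF9 had 7.15, 7.34, 8.55 and 7.43 CPM after KI-CDK9d-32, 4.95, 8.22, 8.20 and 0 after KB-0742 and 15.7, 10.2, 11.7 and 5.86 in vehicle. ISG15 had 36.2, 36.3, 28.5 and 18.8 CPM after KI-CDK9d-32, 53.3, 35.4, 36.9 and 25.5 after KB-0742 and 38.2, 26.7, 19.1 and 15.6 in vehicle. Both overlapped across groups, and neither was called after KI-CDK9d-32 (-0.51 ± 0.44 and 0.26 ± 0.28) or KB-0742 (-0.96 ± 0.48 and 0.62 ± 0.29). PARP9 had 3.57, 5.33, 4.89 and 4.60 CPM after KI-CDK9d-32, 6.60, 1.26, 3.51 and 4.94 after KB-0742 and 9.70, 9.95, 6.27 and 9.77 in vehicle. KI-CDK9d-32 lay wholly below vehicle, but neither change passed the test (-0.94 ± 0.45 and -1.12 ± 0.48). DTX3L was not tested in RH4. Besides IFITM2, IFITM3 and B2M, only IFIT2, which was tested only through KB-0742 libraries, was called higher against vehicle in RH4, with 9, 14, 6 and 5 counts after KB-0742 at 8 h and 6, 1, 3 and 0 in vehicle (2.84 ± 0.78, and 1.37, not called, with spike-in scaling). IRF7 and IFI16, like IFIT2 outside the rule for named genes, were lower after KB-0742 at 8 h, at -2.51 ± 0.83 and -1.38 ± 0.56, and the IFI16 call was lost without the filter on low counts and without KB-0742 replicate 1 (-1.26), KB-0742 replicate 4 (-1.29), vehicle replicate 2 (-0.97) and KB-0742 replicate 2 (-1.20).

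Across the lines, 16 genes could be compared. Of all genes tested at 8 h in MOLT4, PSN1 and RH4, 20.8%, 11% and 9.2% were higher after KI-CDK9d-32, and 23.4%, 15.1% and 22.5% after KB-0742. The share of all genes higher in all 3 lines was not counted, so whether the set stands out here was not tested. At 8 h B2M, IFITM2 and IFITM3 were called higher in all 3 lines after KI-CDK9d-32, and B2M and IFITM2 after KB-0742, on the TMM scale. With spike-in scaling none of these was called higher, and only IFITM2 in MOLT4 after KB-0742 and in RH4 after KI-CDK9d-32 kept a positive sign (0.053 and 0.021). No gene of the 16 was called lower in all 3 lines after either compound, although TRIM21, which was untested in RH4, was lower after KI-CDK9d-32 in both MOLT4 and PSN1.

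**Figure D4:**
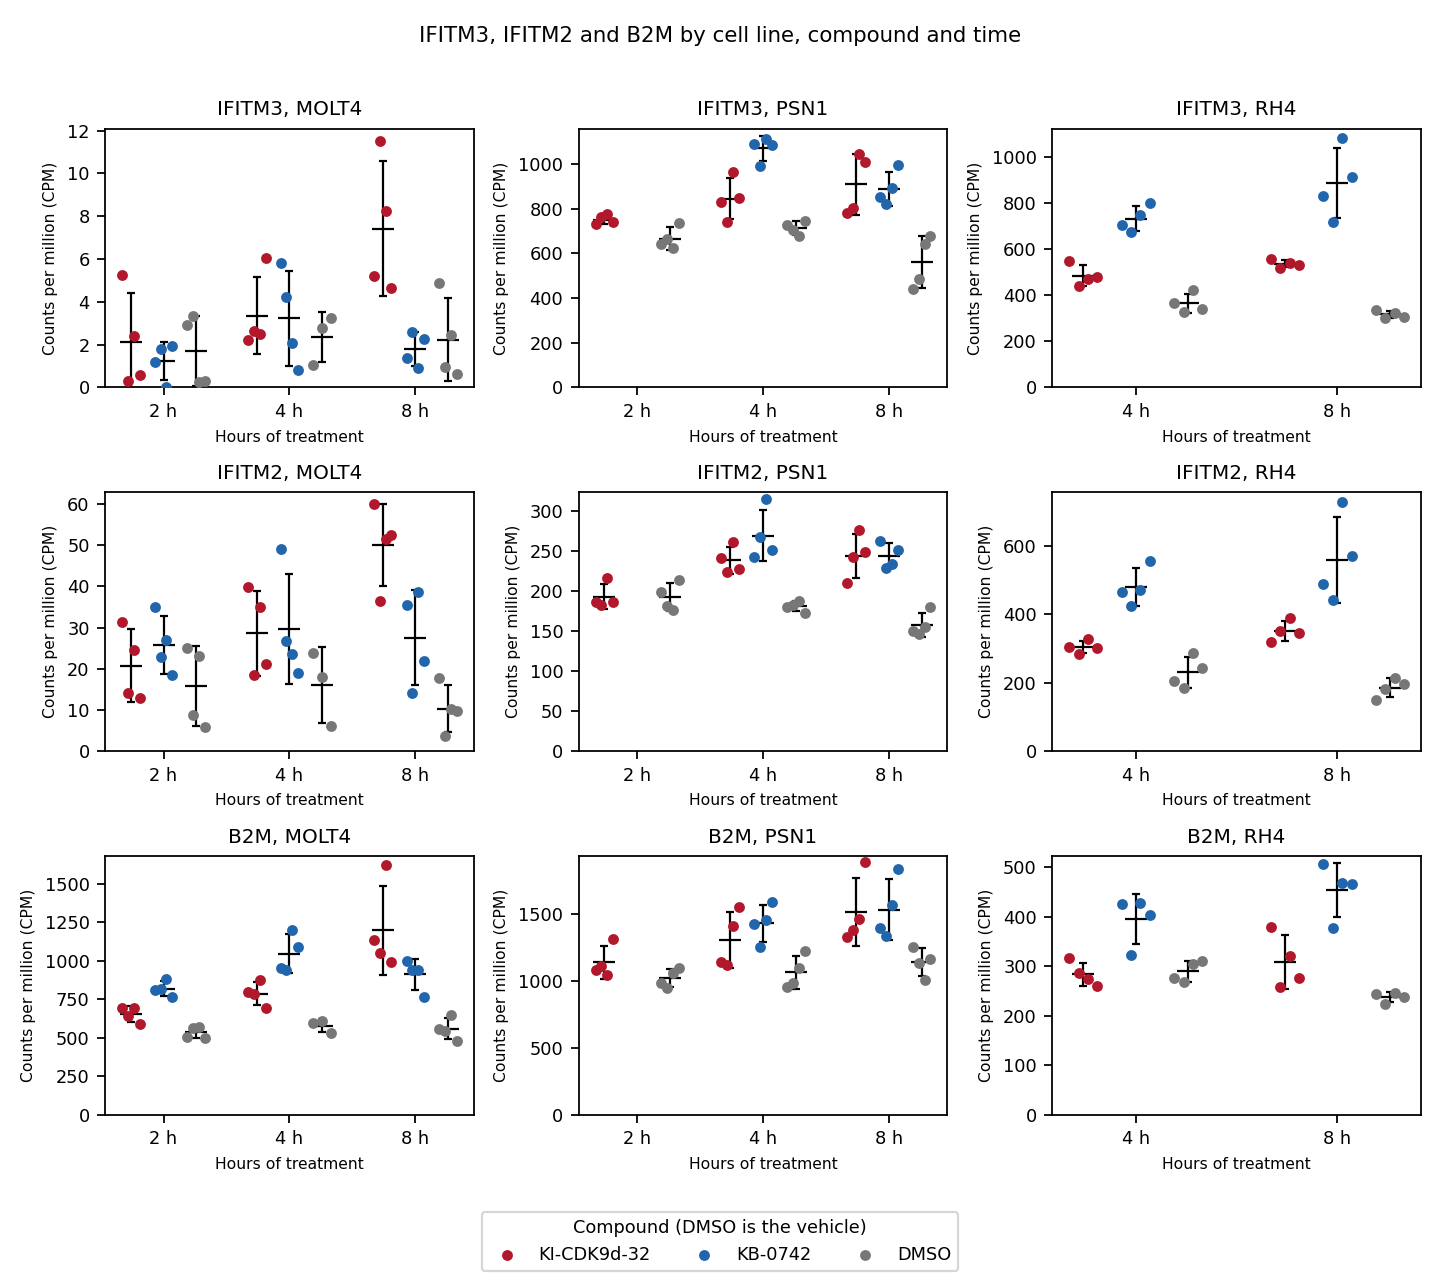
CPM of IFITM3, IFITM2 and B2M (rows) in every library of MOLT4, PSN1 and RH4 (columns) by hours of treatment, with the mean and SD of each group. IFITM3 in RH4 at 8 h, for instance, was at 518 to 556 CPM after KI-CDK9d-32 and 719.6 to 1085 after KB-0742, against 300.1 to 336 in vehicle, a difference relative to other genes that turned negative with spike-in scaling (-0.12 and -0.080).

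Compared directly at the same time, the compounds differed at 8 h for 20 of the 38 tested in MOLT4, for 3 of 34 in PSN1 and for 6 of 17 in RH4. In MOLT4 KI-CDK9d-32 was higher than KB-0742 for 0 genes and lower for 6 at 2 h (8.2% and 10.1% of all genes, 18.3% in either direction), for 7 and 3 at 4 h (14.6% and 21.1%, 35.7% in either direction), and for 14 and 6 at 8 h (28.9% and 29.6%, 58.5% in either direction). The median of the 38 genes at 8 h was 0.51, against 0.04 over all genes. IRF1 had the lowest values relative to KB-0742 of the called genes at the earlier times, -1.96 ± 0.18 (adjusted p = 7.45e-12) at 2 h and -2.83 ± 0.20 (adjusted p = 8.16e-17) at 4 h, and -0.060 ± 0.18 at 8 h, where it was not called. At 8 h TRIM21 was the furthest below of the well-counted genes, at -3.56 ± 0.43 (adjusted p = 7.54e-10). USP18 was also lower, at -0.87 ± 0.31, a call lost without KB-0742 replicate 3 (-0.63). IFIT2, with no count after KI-CDK9d-32, was at least 5.09-fold lower.

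Among the genes higher after KI-CDK9d-32 than after KB-0742 at 8 h were OAS3, IFI44 and MX1, by 2.00 ± 0.32, 1.44 ± 0.37 and 1.14 ± 0.40, against 0.55, -0.068 and -0.22, none of them called, with spike-in scaling. The MX1 call was lost without KI-CDK9d-32 replicate 4 (0.70). STAT2 was higher at 8 h by 0.69 ± 0.29 (-0.75 with spike-in scaling), a call lost without the filter on low counts and without any 1 of 5 of the 8 libraries (all but KI-CDK9d-32 replicate 1, KI-CDK9d-32 replicate 3 and KB-0742 replicate 1), where the log2 fold change was 0.59 to 0.69. ISG20 had 82 counts over the 4 KI-CDK9d-32 libraries and 3 over the 4 KB-0742 libraries, a ratio of 41.1 (95% interval 13.6 to 204). With spike-in scaling 2 genes were higher and 18 lower (2.35% and 54.8% of all genes).

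In PSN1 the compounds differed in few genes of the set, and KI-CDK9d-32 was higher for 1 and lower for 2 at 4 h (10% and 7.45% of all genes, 17.4% in either direction) and again for 1 and 2 at 8 h (12% and 12.8%, 24.8% in either direction). ADAR was the furthest below at 8 h, at -1.12 ± 0.15 (adjusted p = 2.06e-07) with TMM and -1.19 with spike-in scaling. DTX3L was higher by 1.44 ± 0.45, a call lost without KB-0742 replicate 2 (1.08) and KI-CDK9d-32 replicate 2 (1.27), and PARP14 was lower, at -1.0 ± 0.29. In RH4 KI-CDK9d-32 was higher for 1 gene and lower for 4 at 4 h (13.4% and 12.4%, 25.8% in either direction), and higher for 2 and lower for 4 at 8 h (19.1% and 19.3%, 38.4% in either direction). EIF2AK2 was higher at 8 h, by 1.79 ± 0.38 (adjusted p = 2.12e-04) with TMM and 2.45 with spike-in scaling. IFI44 was higher by 1.09 ± 0.43, a call lost without KB-0742 replicate 4 (0.82), KB-0742 replicate 2 (1.08) and KI-CDK9d-32 replicate 2 (0.75). RIGI, the RNA sensor RIG-I, which passed the filter in RH4 only through KB-0742 libraries, had 3 counts over the KI-CDK9d-32 libraries at 4 h and 37 over the KB-0742 libraries, a ratio of 0.0529 (95% interval 0.0104 to 0.167), and its call was lost with DESeq2 (-4.23) and without any 1 of 6 of the 8 libraries (all but KI-CDK9d-32 replicate 4 and KB-0742 replicate 3), where the log2 fold change was -3.99 to -3.62. IFITM2, IFITM3 and B2M were lower after KI-CDK9d-32 than after KB-0742, at -0.67 ± 0.13, -0.73 ± 0.10 and -0.56 ± 0.11, against 0.025, -0.044 and 0.13 with spike-in scaling.

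The change of each compound's effect between 4 and 8 h was tested as an interaction. For KI-CDK9d-32 in MOLT4 3 genes moved up and 2 down (5.14% and 7.36% of all genes, 12.5% in either direction), and for KB-0742 1 moved up and 5 down (7.84% and 9.91%, 17.7% in either direction). IRF1 moved up by 2.00 ± 0.27 (adjusted p = 2.59e-07) after KI-CDK9d-32 on the TMM scale, against 0.10, not called, with spike-in scaling. Its TMM values against vehicle of the same time were -0.23 at 8 h and -2.23 at 4 h. USP18 moved down, at -1.87 ± 0.37 (adjusted p = 2.18e-04). After KB-0742 TRIM21 moved up by 2.13 ± 0.46 (adjusted p = 5.80e-04), and MX1 moved down, at -1.57 ± 0.49, a call lost without KB-0742 8 h replicate 4 (-1.38), vehicle 4 h replicate 4 (-1.45) and KB-0742 4 h replicate 2 (-1.40). In PSN1 no gene of the set changed between the times for KI-CDK9d-32 (0.00802% of genes higher and 0.00802% lower, 0.016% in either direction) or for KB-0742 (1.31% and 0.577%, 1.88% in either direction) by edgeR. For each compound 3 genes there had an unadjusted p below 0.05, and DESeq2 called 0 for KI-CDK9d-32 and 1 for KB-0742. In RH4 none changed for KI-CDK9d-32 by edgeR (0% and 0% of genes, 0% in either direction), where 4 had an unadjusted p below 0.05 and DESeq2 called 0. IFITM3 and B2M moved up for KB-0742 in RH4 (4.37% and 4.12%, 8.49% in either direction) by 0.48 ± 0.14 and 0.49 ± 0.15, against -0.034 and -0.038 with spike-in scaling. The IFITM3 call was lost without any 1 of 5 of the 16 libraries, where the log2 fold change was 0.37 to 0.47, and the B2M call without any 1 of 12 of the 16 libraries, where the log2 fold change was 0.40 to 0.50, and both without the filter on low counts.

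Differences between lines in the 8 h effect were tested in 1 fit of all 91 libraries, in which 41 genes of the set passed the filter. For KI-CDK9d-32, 4 genes had a higher effect in MOLT4 than in PSN1 and 1 a lower one (7.36% and 10.2% of all genes, 17.6% in either direction), 5 and 3 differed between MOLT4 and RH4 (6.51% and 10.2%, 16.7% in either direction), and none differed between PSN1 and RH4 (0.327% and 0.246%, 0.573% in either direction), where 6 had an unadjusted p below 0.05 and DESeq2 called 0. For KB-0742 the counts were 2 higher and 4 lower for MOLT4 against PSN1 (4.36% and 7.99%, 12.3% in either direction), 3 and 3 for MOLT4 against RH4 (3.75% and 5.62%, 9.38% in either direction), and 3 and 1 for PSN1 against RH4 (4.34% and 3.49%, 7.83% in either direction). The B2M effect of KI-CDK9d-32 was larger in MOLT4 than in PSN1 by 0.76 ± 0.16 (adjusted p = 1.81e-04) and than in RH4 by 0.78 ± 0.16 (adjusted p = 1.65e-04), against -1.24 and -1.29 with spike-in scaling. For IRF1 the effect of KI-CDK9d-32 differed by 1.27 ± 0.41 (adjusted p = 0.0196) between MOLT4 and RH4, against -0.82 with spike-in scaling. That call was lost without the filter on low counts and without replicate 1 (1.06), replicate 2 (1.14) and replicate 4 (0.94). The KB-0742 effect on MX1 was lower in MOLT4 than in PSN1, with a difference of -2.56 ± 0.80 (adjusted p = 0.0216), a call lost without replicate 2 (-2.77), replicate 3 (-2.10) and replicate 4 (-1.84). That call was also lost with spike-in scaling (-2.91). MX1 was thinly counted in PSN1, at 0.938 ± 0.584 TPM in vehicle, and no treated PSN1 library reached the limit of the filter on low counts.

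Other genes of the pathway were read from 3 lists, on the TMM scale unless said otherwise. The shares of all genes called higher and lower at 8 h, against which their counts stand, were 20.8% and 28.7% in MOLT4 after KI-CDK9d-32 and 23.4% and 25.8% after KB-0742. In PSN1 they were 11% and 9.6% after KI-CDK9d-32 and 15.1% and 15.1% after KB-0742, and in RH4 9.2% and 6.06% after KI-CDK9d-32 and 22.5% and 23% after KB-0742. Of 12 tested interferon receptor and JAK-STAT genes in MOLT4 at 8 h, 1 was higher and 4 lower after KI-CDK9d-32, with the largest changes in PTPN2, a phosphatase of JAK and STAT proteins (-1.80 ± 0.19), and IFNGR1, an interferon gamma receptor chain (-1.63 ± 0.48). After KB-0742 2 were higher and 6 lower, led by PIAS1, an inhibitor of cytokine signaling (1.19 ± 0.17, and -0.11 with spike-in scaling), and IFNAR1 (-1.06 ± 0.40). In PSN1 2 of 13 were higher and 2 lower after KI-CDK9d-32, and 2 higher and 1 lower after KB-0742. In RH4 0 of 11 were higher and 1 lower after KI-CDK9d-32, and 1 higher and 3 lower after KB-0742.

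Of 13 tested genes of nucleic acid sensing and interferon induction in MOLT4, 1 was higher and 8 lower after KI-CDK9d-32 at 8 h, and 2 were higher and 7 lower after KB-0742. STING1, the adaptor of cytosolic DNA sensing, had the largest change after KB-0742 (-3.64 ± 0.72), followed by DHX58, an RNA helicase related to RIG-I (-2.38 ± 0.58). In PSN1 0 of 14 were higher and 4 lower after KI-CDK9d-32, and 1 higher and 5 lower after KB-0742. In RH4 none of 12 was called after KI-CDK9d-32, whereas after KB-0742 3 were lower, led by IRF3, the factor that induces interferon genes (-3.20 ± 0.33), and MYD88, an adaptor of toll-like receptors (-2.13 ± 0.45).

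Of the class I antigen presentation genes, 9 of 17 were higher and 5 lower after KI-CDK9d-32 in MOLT4 at 8 h (20.8% and 28.7% of all genes), with ERAP2, a peptide-trimming protease, at 1.26 ± 0.15 and HLA-B, a class I heavy chain, at 1.24 ± 0.18 (-1.56 and -1.51 with spike-in scaling). After KB-0742 2 were higher and 6 lower, led by NLRC5, the activator of class I genes (-2.35 ± 0.56), and CALR, a chaperone of class I assembly (-1.49 ± 0.098). In PSN1 8 of 18 were higher and 2 lower after KI-CDK9d-32 and 5 higher and 1 lower after KB-0742, and in RH4 4 of 11 were higher after KI-CDK9d-32 and 7 of 11 after KB-0742, and none lower. With spike-in scaling no gene of the 3 lists was called higher against vehicle at 8 h in any line, and in MOLT4 after KI-CDK9d-32 all 12, 13 and 17 were called lower, as were 91% of all genes. Of the genes called higher with TMM, only TRAF6 and ZC3HAV1 in MOLT4, PIAS1 in PSN1 and TAPBP in RH4, all after KB-0742, kept a positive sign.

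Scaling by the spike-ins turned most calls above vehicle to the other side of it. The genes of the set then called higher and lower against vehicle in MOLT4 numbered 0 and 1 after KI-CDK9d-32 at 2 h (0.171% and 1.65% of all genes), 1 and 15 at 4 h (0.686% and 37%) and 1 and 34 at 8 h (0.857% and 91%). After KB-0742 they numbered 0 and 7 at 2 h (0.12% and 19.6%), 0 and 25 at 4 h (0.446% and 50.5%) and 0 and 27 at 8 h (0.609% and 54.3%). In PSN1 they were 0 and 0 after KI-CDK9d-32 at 2 h (0.016% and 0.104%), 0 and 8 at 4 h (0.738% and 12.5%) and 0 and 21 at 8 h (1.11% and 51.2%), and after KB-0742 0 and 14 at 4 h (0.593% and 42.3%) and 0 and 19 at 8 h (1.2% and 46.8%). In RH4 they were 0 and 1 after KI-CDK9d-32 at 4 h (0.133% and 0.738%) and 0 and 7 at 8 h (0.738% and 51.6%), and after KB-0742 0 and 11 at 4 h (0.506% and 61.9%) and 0 and 13 at 8 h (1% and 77.9%). Without the 3 MOLT4 libraries of highest spike-in share, an alternative added after the data were seen, no count of genes called in MOLT4 moved by more than 1.5 times.

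**Figure D5:**
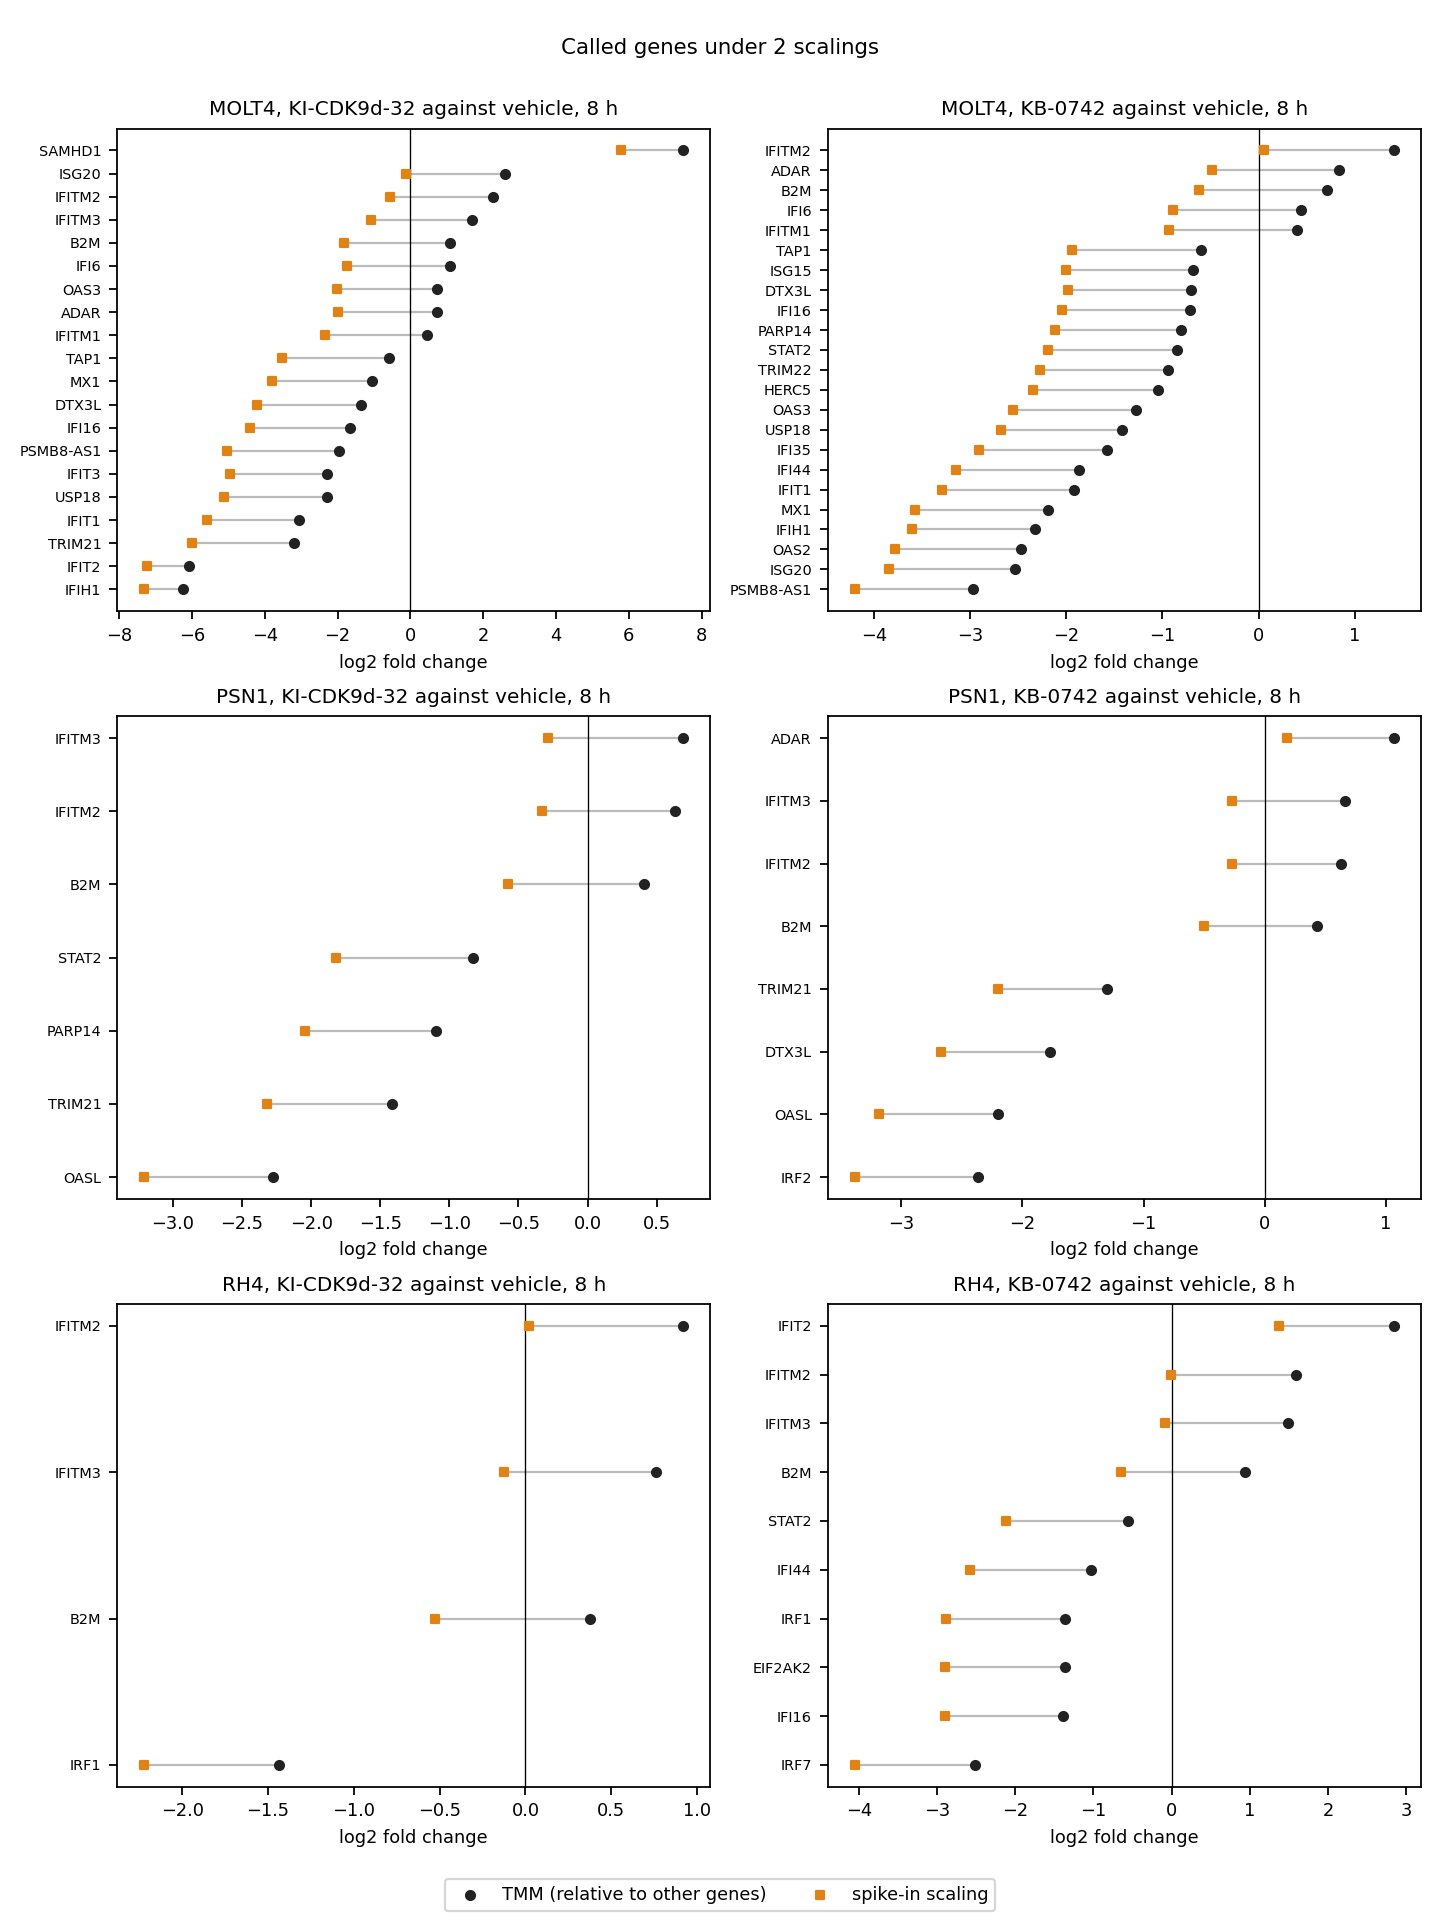
Log2 fold change against vehicle at 8 h of every called gene, for each line and compound, under TMM (circles) and spike-in scaling (squares), joined by a gray line. All squares lie left of their circles, and most genes right of 0 with TMM cross to the left of it, except SAMHD1 in MOLT4 and IFITM2 in RH4 after KI-CDK9d-32, and IFITM2 in MOLT4, ADAR in PSN1 and IFIT2 in RH4 after KB-0742.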

How the data were processed

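RNA from 91 libraries of 3 cell lines was quantified with Salmon against hg38, per the submitters' processing notes, and the Salmon version is not given in the sources used here. Per the labels' protocols, lysates of 1000 seeded cells received the same amount of Lexogen ERCC and SIRV mix, and libraries were built from 1 ng of RNA with scaled-down SMART-seq2 and Nextera XT reactions, which mark neither strand nor molecule. The authors deposited 1 table of expected counts and 1 of log2 values of TPM plus 1 for each line. The expected counts were rounded to whole numbers. The deposited log2 values were turned back into TPM and rescaled over genes without spike-ins. Each table held 62856 entries, of which 62710 genes were used, with 99 spike-ins and 47 duplicates of the Y pseudoautosomal region set aside, and 62639 genes had a symbol in the reference table of gene names, with positions taken from GENCODE 29.

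Counts were tested in R 4.3.3 with edgeR 4.0.16 (TMM, robust quasi-likelihood test, filter at a minimum count of 10, Benjamini-Hochberg adjustment at 0.05), in 1 fit for each line over all its groups, for 28 comparisons, and in 1 fit of all lines for 6 differences between lines. The code was tested on simulated data. The filter set aside 0.437%, 0.584% and 0.683% of gene counts in MOLT4, PSN1 and RH4. The alternatives were DESeq2 1.42.0, RLE size factors, spike-in scaling, no filter, a replicate block, leaving out libraries, and spike-ins in the TPM total. Count ratios and bounds were scaled by TMM library size. The ratios carry exact 95% intervals, and a group at 0 was set to a floor of 3 counts. The genes given per library were the 2 lowest and 2 highest called at 8 h for each line and compound, averaging a log2 CPM of 3 or more, and STAT2, IRF1, IRF9, ISG15, B2M, DTX3L and PARP9, with others named as chosen after their values were seen. The members, the pathway lists and the marker lists were chosen with earlier results of these data known. Monocyte, T-lineage, epithelial and myogenic marker lists were summed as TPM; at 8 h the epithelial list summed to 0.175 to 1.50, 0.499 to 1.20 and 0 to 10.9 TPM and the myogenic list to 2.12 to 4.14, 0.226 to 0.389 and 0 to 0.428 TPM in MOLT4 (KI-CDK9d-32, KB-0742 and vehicle).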

Additional observations from a re-analysis of the deposited data

Results flagged for a closer look

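Groups of 4 libraries at 8 h were checked for 1 library far from the other 3, where chance alone flags about 5% of groups of normally spread values. A group with 0 in 3 libraries and any count in the other is always flagged, as for ISG20 and SAMHD1 in MOLT4 after KB-0742. Of 140 groups, 7 were flagged. These were 8.15 CPM of USP18 in MOLT4 KI-CDK9d-32 replicate 4 (others 6.53, 6.67 and 6.43), 1.35 CPM of ISG20 in MOLT4 KB-0742 replicate 3 (others 0, 0 and 0), 0.378 CPM of SAMHD1 in MOLT4 KB-0742 replicate 4 (others 0, 0 and 0), 21.1 CPM of EIF2AK2 in PSN1 KI-CDK9d-32 replicate 1 (others 16.6, 15.8 and 15.9), 18.3 CPM of SAMHD1 in PSN1 KI-CDK9d-32 replicate 4 (others 8.27, 9.24 and 7.66), 6.86 CPM of ISG20 in PSN1 KB-0742 replicate 1 (others 1.64, 1.71 and 2.08) and 6.27 CPM of PARP9 in RH4 vehicle replicate 3 (others 9.70, 9.95 and 9.77).

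The effect of a compound against vehicle differed between 8 and 4 h, as a log2 difference ± SE in edgeR's interaction test, as follows. For KI-CDK9d-32 in MOLT4 it was IRF1 2.00 ± 0.27 (adjusted p = 2.59e-07), IFI6 0.54 ± 0.17 (adjusted p = 0.0290), B2M 0.66 ± 0.16 (adjusted p = 0.00293), USP18 -1.87 ± 0.37 (adjusted p = 2.18e-04) and ISG15 -0.75 ± 0.25 (adjusted p = 0.0427). For KB-0742 in MOLT4 it was IFI35 -2.02 ± 0.38 (adjusted p = 7.57e-05), IRF1 -0.77 ± 0.24 (adjusted p = 0.0208), TRIM21 2.13 ± 0.46 (adjusted p = 5.80e-04), HERC5 -1.14 ± 0.36 (adjusted p = 0.0222), MX1 -1.57 ± 0.49 (adjusted p = 0.0189) and ISG15 -1.17 ± 0.25 (adjusted p = 5.84e-04). For KB-0742 in RH4 it was IFITM3 0.48 ± 0.14 (adjusted p = 0.0250) and B2M 0.49 ± 0.15 (adjusted p = 0.0402).

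The 8 h effect differed between lines in the same test over all libraries, with the line named first on top. After KI-CDK9d-32, MOLT4 minus PSN1 was SAMHD1 7.68 ± 1.14 (adjusted p = 1.32e-07), IFIH1 -6.29 ± 2.06 (adjusted p = 0.0231), ADAR 0.85 ± 0.26 (adjusted p = 0.0146), B2M 0.76 ± 0.16 (adjusted p = 1.81e-04) and IFITM2 1.69 ± 0.40 (adjusted p = 0.00107). After KB-0742, MOLT4 minus PSN1 was IFI35 -1.37 ± 0.48 (adjusted p = 0.0477), TRIM21 1.58 ± 0.55 (adjusted p = 0.0433), MX1 -2.56 ± 0.80 (adjusted p = 0.0216), IRF2 2.36 ± 0.65 (adjusted p = 0.00683), ISG20 -4.05 ± 1.25 (adjusted p = 0.0198) and ISG15 -1.14 ± 0.32 (adjusted p = 0.00961). After KI-CDK9d-32, MOLT4 minus RH4 was IFI35 -2.72 ± 0.99 (adjusted p = 0.0462), SAMHD1 7.81 ± 1.17 (adjusted p = 2.22e-07), IFIT2 -7.99 ± 1.79 (adjusted p = 4.36e-04), IRF1 1.27 ± 0.41 (adjusted p = 0.0196), ADAR 1.35 ± 0.29 (adjusted p = 2.33e-04), B2M 0.78 ± 0.16 (adjusted p = 1.65e-04), IFITM2 1.39 ± 0.40 (adjusted p = 0.00859) and IFIT1 -4.10 ± 1.46 (adjusted p = 0.0396). After KB-0742, MOLT4 minus RH4 was EIF2AK2 1.37 ± 0.41 (adjusted p = 0.0207), IFI35 -4.21 ± 1.08 (adjusted p = 0.00472), IFITM3 -1.88 ± 0.61 (adjusted p = 0.0350), IFI27 5.77 ± 1.93 (adjusted p = 0.0430), IRF2 3.22 ± 1.08 (adjusted p = 0.0417) and ISG15 -1.33 ± 0.34 (adjusted p = 0.00489). After KB-0742, PSN1 minus RH4 was EIF2AK2 1.53 ± 0.42 (adjusted p = 0.0108), IRF1 1.41 ± 0.45 (adjusted p = 0.0349), IFITM3 -0.76 ± 0.25 (adjusted p = 0.0465) and ADAR 0.97 ± 0.28 (adjusted p = 0.0198). The values of SAMHD1, IFIH1, IFIT1, IFIT2, IFI27, ISG20, IRF2 against RH4 and IFI35 against RH4 are fitted with groups of few or no counts, depend on the prior count and are no bound. SAMHD1, IFIH1, IFIT1 and IFIT2 in MOLT4 also passed the filter on low counts only through the group where they are high. In PSN1 MX1, thinly counted there, passed that filter only through vehicle libraries. With spike-in scaling the values for IFI6 and B2M after KI-CDK9d-32 and for IFITM3 and B2M after KB-0742 in the change with time, and for ADAR, B2M and IFITM2 in both differences and IRF1 against RH4 between lines after KI-CDK9d-32, had the opposite sign. The MOLT4 time differences of IRF1 after KI-CDK9d-32 (0.10) and of every gene listed after KB-0742 kept their sign but were not called. After KB-0742 they were IFI35 -1.93, IRF1 -0.81, TRIM21 2.41, HERC5 -1.06, MX1 -1.82 and ISG15 -1.19. Nor were the KB-0742 differences of MOLT4 from PSN1 or RH4 called, or those of IRF1, IFITM3 and ADAR between PSN1 and RH4. Of the time differences, IFI6 (KI-CDK9d-32, MOLT4, without any 1 of 9 of the 15 libraries, where the log2 fold change was 0.49 to 0.55), ISG15 (KI-CDK9d-32, MOLT4, without any 1 of 7 of the 15 libraries, where the log2 fold change was -0.74 to -0.60), IRF1 (KB-0742, MOLT4, without KB-0742 8 h replicate 4 (-0.55), vehicle 4 h replicate 4 (-0.65) and vehicle 8 h replicate 3 (-0.68)), HERC5 (KB-0742, MOLT4, without KB-0742 4 h replicate 4 (-0.97), KB-0742 8 h replicate 3 (-1.01) and vehicle 4 h replicate 3 (-1.01)), MX1 (KB-0742, MOLT4, without KB-0742 8 h replicate 4 (-1.38), vehicle 4 h replicate 4 (-1.45) and KB-0742 4 h replicate 2 (-1.40)), IFITM3 (KB-0742, RH4, without any 1 of 5 of the 16 libraries, where the log2 fold change was 0.37 to 0.47) and B2M (KB-0742, RH4, without any 1 of 12 of the 16 libraries, where the log2 fold change was 0.40 to 0.50) were lost when single libraries were left out. Of the line differences, SAMHD1, B2M and IFITM2 for MOLT4 against PSN1 and SAMHD1, IFIT2, ADAR and B2M for MOLT4 against RH4, all after KI-CDK9d-32, held whichever replicate number was left out in all groups, and the others were lost without at least 1, over -6.63 to -3.85 for IFIH1 (KI-CDK9d-32, MOLT4 against PSN1), 0.51 to 0.70 for ADAR (KI-CDK9d-32, MOLT4 against PSN1), -1.60 to -1.14 for IFI35 (KB-0742, MOLT4 against PSN1), 1.03 to 1.94 for TRIM21 (KB-0742, MOLT4 against PSN1), -2.77 to -1.84 for MX1 (KB-0742, MOLT4 against PSN1), 1.92 for IRF2 (KB-0742, MOLT4 against PSN1), -3.72 to -2.71 for ISG20 (KB-0742, MOLT4 against PSN1), -1.04 to -0.83 for ISG15 (KB-0742, MOLT4 against PSN1), -2.98 to -2.15 for IFI35 (KI-CDK9d-32, MOLT4 against RH4), 0.94 to 1.14 for IRF1 (KI-CDK9d-32, MOLT4 against RH4), 1.26 to 1.35 for IFITM2 (KI-CDK9d-32, MOLT4 against RH4), -5.02 to -3.35 for IFIT1 (KI-CDK9d-32, MOLT4 against RH4), 1.20 to 1.46 for EIF2AK2 (KB-0742, MOLT4 against RH4), -3.49 for IFI35 (KB-0742, MOLT4 against RH4), -1.52 to -1.0 for IFITM3 (KB-0742, MOLT4 against RH4), 4.58 to 5.36 for IFI27 (KB-0742, MOLT4 against RH4), 2.93 to 4.81 for IRF2 (KB-0742, MOLT4 against RH4), -1.28 for ISG15 (KB-0742, MOLT4 against RH4), 1.35 to 1.56 for EIF2AK2 (KB-0742, PSN1 against RH4), 1.35 to 1.48 for IRF1 (KB-0742, PSN1 against RH4), -0.86 to -0.58 for IFITM3 (KB-0742, PSN1 against RH4) and 0.83 to 0.91 for ADAR (KB-0742, PSN1 against RH4).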

How the results depend on the processing

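With 1598283 to 3240753 gene counts a library, depth limited the thinly counted genes, and intervals for counts cover counting error only. Of 220 calls of single genes, 213 held with DESeq2 (of 219 to which it gave an adjusted p), 212 with RLE size factors, 182 without the filter on low counts and 97 with spike-in scaling, where 49 were lost and 74 changed sign. Leaving out each library in turn (for differences between lines, each replicate number in all groups) kept 128 calls throughout, lost 92 without at least 1 of them and changed the sign of none. Without the 3 MOLT4 libraries of highest spike-in share, 100 of 107 MOLT4 calls held. Lost calls were, with DESeq2, B2M for KI-CDK9d-32 against KB-0742 in MOLT4 at 2 h (-0.27), IFITM1 for KI-CDK9d-32 against KB-0742 in MOLT4 at 2 h (-0.28), TAP1 for KI-CDK9d-32 against vehicle in MOLT4 at 8 h (-0.48), ISG15 for KI-CDK9d-32 at 8 h against 4 h in MOLT4 (-0.66), RIGI for KI-CDK9d-32 against KB-0742 in RH4 at 4 h (-4.23) and IFI35 for KI-CDK9d-32 in MOLT4 against RH4 (-2.91). With RLE size factors they were B2M for KI-CDK9d-32 against KB-0742 in MOLT4 at 2 h (-0.27), IFITM1 for KI-CDK9d-32 against KB-0742 in MOLT4 at 2 h (-0.28), TAP1 for KI-CDK9d-32 against vehicle in MOLT4 at 8 h (-0.48), ISG15 for KI-CDK9d-32 at 8 h against 4 h in MOLT4 (-0.66), B2M for KB-0742 at 8 h against 4 h in RH4 (0.47), IFI35 for KB-0742 in MOLT4 against PSN1 (-1.28), IFI35 for KI-CDK9d-32 in MOLT4 against RH4 (-2.58) and IRF1 for KB-0742 in PSN1 against RH4 (1.31). Without those 3 libraries they were OAS2 for KI-CDK9d-32 against vehicle in MOLT4 at 4 h (-1.62), IFI16 for KI-CDK9d-32 against KB-0742 in MOLT4 at 4 h (0.68), STAT2 for KI-CDK9d-32 against KB-0742 in MOLT4 at 4 h (0.42), IFITM3 for KI-CDK9d-32 against vehicle in MOLT4 at 8 h (1.68), IFIT5 for KI-CDK9d-32 against KB-0742 in MOLT4 at 8 h (-1.15), IFI6 for KI-CDK9d-32 at 8 h against 4 h in MOLT4 (0.45) and IRF1 for KB-0742 at 8 h against 4 h in MOLT4 (-0.66). The cause of each change was not tested, beyond the construction of the alternatives.

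The count of called genes moved by more than 1.5 times with spike-in scaling, to 1 for KI-CDK9d-32 against vehicle in MOLT4 at 2 h, 1 for KI-CDK9d-32 against KB-0742 in MOLT4 at 2 h, 16 for KI-CDK9d-32 against vehicle in MOLT4 at 4 h, 25 for KB-0742 against vehicle in MOLT4 at 4 h, 3 for KI-CDK9d-32 against KB-0742 in MOLT4 at 4 h, 35 for KI-CDK9d-32 against vehicle in MOLT4 at 8 h, 19 for KI-CDK9d-32 at 8 h against 4 h in MOLT4, 0 for KB-0742 at 8 h against 4 h in MOLT4, 8 for KI-CDK9d-32 against vehicle in PSN1 at 4 h, 14 for KB-0742 against vehicle in PSN1 at 4 h, 1 for KI-CDK9d-32 against KB-0742 in PSN1 at 4 h, 21 for KI-CDK9d-32 against vehicle in PSN1 at 8 h, 19 for KB-0742 against vehicle in PSN1 at 8 h, 1 for KI-CDK9d-32 against KB-0742 in PSN1 at 8 h, 1 for KI-CDK9d-32 against vehicle in RH4 at 4 h, 11 for KB-0742 against vehicle in RH4 at 4 h, 3 for KI-CDK9d-32 against KB-0742 in RH4 at 4 h, 7 for KI-CDK9d-32 against vehicle in RH4 at 8 h, 3 for KI-CDK9d-32 against KB-0742 in RH4 at 8 h, 0 for KB-0742 at 8 h against 4 h in RH4, 19 for KI-CDK9d-32 in MOLT4 against PSN1, 0 for KB-0742 in MOLT4 against PSN1, 18 for KI-CDK9d-32 in MOLT4 against RH4, 0 for KB-0742 in MOLT4 against RH4 and 1 for KB-0742 in PSN1 against RH4. Without the filter on low counts it moved to 3 for KI-CDK9d-32 against KB-0742 in MOLT4 at 2 h, 1 for KI-CDK9d-32 against vehicle in PSN1 at 4 h and 0 for KB-0742 at 8 h against 4 h in RH4. With DESeq2 it moved to 1 for KB-0742 at 8 h against 4 h in PSN1, 8 for KI-CDK9d-32 in MOLT4 against PSN1 and 8 for KB-0742 in PSN1 against RH4, and with RLE size factors to 1 for KB-0742 at 8 h against 4 h in RH4. Same-numbered libraries of the same time deviated together weakly, with median correlations of 0.034, 0.084 and 0.054 in MOLT4, PSN1 and RH4. Libraries of other numbers had medians of -0.0122, -0.0368 and -0.0275. Every same-numbered pair was positive in PSN1 and RH4 (lowest 0.0355 and 0.0172), though not every pair was above 0.1, and in MOLT4 the lowest was -0.0191. A small shared deviation by number was thus present, and the main fit did not pair the libraries. With the replicate block the count moved to 1 for KI-CDK9d-32 against vehicle in PSN1 at 2 h, 5 for KI-CDK9d-32 against KB-0742 in PSN1 at 4 h, 1 for KB-0742 at 8 h against 4 h in PSN1, 1 for KI-CDK9d-32 at 8 h against 4 h in RH4 and 4 for KB-0742 at 8 h against 4 h in RH4, and all 220 single calls held.

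Leaving out 1 library at a time, the count of called genes ran over 1 to 3 for KI-CDK9d-32 against vehicle in MOLT4 at 2 h, 7 to 9 for KB-0742 against vehicle in MOLT4 at 2 h, 7 to 11 for KI-CDK9d-32 against vehicle in MOLT4 at 4 h, 12 to 15 for KB-0742 against vehicle in MOLT4 at 4 h, 17 to 20 for KI-CDK9d-32 against vehicle in MOLT4 at 8 h, 19 to 22 for KB-0742 against vehicle in MOLT4 at 8 h, 0 to 0 for KI-CDK9d-32 against vehicle in PSN1 at 2 h, 1 to 2 for KI-CDK9d-32 against vehicle in PSN1 at 4 h, 6 to 8 for KB-0742 against vehicle in PSN1 at 4 h, 5 to 10 for KI-CDK9d-32 against vehicle in PSN1 at 8 h, 7 to 9 for KB-0742 against vehicle in PSN1 at 8 h, 0 to 3 for KI-CDK9d-32 against vehicle in RH4 at 4 h, 5 to 6 for KB-0742 against vehicle in RH4 at 4 h, 2 to 4 for KI-CDK9d-32 against vehicle in RH4 at 8 h and 7 to 11 for KB-0742 against vehicle in RH4 at 8 h. For the direct comparison of compounds it ran over 3 to 5 for KI-CDK9d-32 against KB-0742 in MOLT4 at 2 h, 8 to 12 for KI-CDK9d-32 against KB-0742 in MOLT4 at 4 h, 16 to 20 for KI-CDK9d-32 against KB-0742 in MOLT4 at 8 h, 2 to 4 for KI-CDK9d-32 against KB-0742 in PSN1 at 4 h, 2 to 4 for KI-CDK9d-32 against KB-0742 in PSN1 at 8 h, 4 to 5 for KI-CDK9d-32 against KB-0742 in RH4 at 4 h and 4 to 7 for KI-CDK9d-32 against KB-0742 in RH4 at 8 h. For the change with time it ran over 3 to 7 for KI-CDK9d-32 at 8 h against 4 h in MOLT4, 4 to 6 for KB-0742 at 8 h against 4 h in MOLT4, 0 to 0 for KI-CDK9d-32 at 8 h against 4 h in PSN1, 0 to 1 for KB-0742 at 8 h against 4 h in PSN1, 0 to 0 for KI-CDK9d-32 at 8 h against 4 h in RH4 and 0 to 3 for KB-0742 at 8 h against 4 h in RH4. For the difference between lines at 8 h each replicate number was instead left out of all groups at once. The count then ran over 4 to 5 for KI-CDK9d-32 in MOLT4 against PSN1, 2 to 3 for KB-0742 in MOLT4 against PSN1, 4 to 7 for KI-CDK9d-32 in MOLT4 against RH4, 2 to 5 for KB-0742 in MOLT4 against RH4, 0 to 1 for KI-CDK9d-32 in PSN1 against RH4 and 0 to 2 for KB-0742 in PSN1 against RH4.

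The log2 fold changes that changed sign with spike-in scaling took these values. In MOLT4 against vehicle they were IFI6 -0.029 after KI-CDK9d-32 at 2 h, then IRF1 -0.33, IFI6 -0.17, ADAR -0.15, B2M -0.18, IFITM1 -0.16 and ISG15 -0.35 after KB-0742 at 2 h, then IFI6 -0.40, B2M -0.56 and IFITM1 -0.52 after KI-CDK9d-32 at 4 h, then IRF1 -0.70, IFI6 -0.68, ADAR -0.68, B2M -0.49, IFITM1 -0.50 and ISG15 -0.81 after KB-0742 at 4 h, then OAS3 -2.01, IFI6 -1.73, IFITM3 -1.08, ADAR -1.98, B2M -1.81, ISG20 -0.11, IFITM2 -0.57 and IFITM1 -2.34 after KI-CDK9d-32 at 8 h, then IFI6 -0.89, ADAR -0.49, B2M -0.62 and IFITM1 -0.93 after KB-0742 at 8 h. In PSN1 against vehicle they were IFITM2 -0.22 after KI-CDK9d-32 at 4 h, then IFITM3 -0.26, ADAR -0.13, B2M -0.40 and IFITM2 -0.26 after KB-0742 at 4 h, then IFITM3 -0.28, B2M -0.58 and IFITM2 -0.33 after KI-CDK9d-32 at 8 h, then IFITM3 -0.27, B2M -0.51 and IFITM2 -0.27 after KB-0742 at 8 h. In RH4 against vehicle they were IFITM3 -0.045, B2M -0.61 and IFITM2 -0.012 after KB-0742 at 4 h, then IFITM3 -0.12 and B2M -0.53 after KI-CDK9d-32 at 8 h, then IFITM3 -0.080, B2M -0.65 and IFITM2 -0.0040 after KB-0742 at 8 h. Between the compounds they were B2M 0.078 and IFITM1 0.049 in MOLT4 at 2 h, then IFI35 -0.65, IFI6 -0.84, BST2 -0.61, TRIM22 -0.52, IFI44 -0.068, MX1 -0.22, B2M -1.19, STAT2 -0.75 and PARP14 -0.97 in MOLT4 at 8 h, then IFITM3 0.068, B2M 0.20 and IFITM2 0.047 in RH4 at 4 h, then B2M 0.13 and IFITM2 0.025 in RH4 at 8 h. For the change with time they were IFI6 -1.32 and B2M -1.25 for KI-CDK9d-32 at 8 h against 4 h in MOLT4, then IFITM3 -0.034 and B2M -0.038 for KB-0742 at 8 h against 4 h in RH4, and between lines at 8 h ADAR -0.98, B2M -1.24 and IFITM2 -0.24 for KI-CDK9d-32 in MOLT4 against PSN1, then IRF1 -0.82, ADAR -0.51, B2M -1.29 and IFITM2 -0.59 for KI-CDK9d-32 in MOLT4 against RH4.

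With spike-ins in the TPM total, vehicle levels were lower throughout, and 8 of 18 moved by more than 1 SD, among them B2M at 620.5, 1054 and 310.2 TPM in MOLT4, PSN1 and RH4.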
